A study of Danio rerio with 17 samples.

Results

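Glutamate receptor genes were followed through the cell classes of the larval zebrafish optic tectum. A gene belonged to the set when its symbol in the count tables was that of an AMPA (*gria*), kainate (*grik*), NMDA (*grin*), delta (*grid*) or metabotropic (*grm*) glutamate receptor gene. This rule used names and no measured value, and 41 of 25432 genes chosen by it are described: 12 NMDA, 8 AMPA, 6 kainate and 2 delta receptor genes, and metabotropic receptor genes divided into 4 of group I, 3 of group II and 6 of group III. Most are a and b copies of a gene that mammals have once. For *GRIK2*, *GRIK3* and *GRM7* the tables give the symbol in capitals. Sequences of these genes were not used here.

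AMPA receptors carry fast excitatory transmission at most glutamatergic synapses of the vertebrate brain, kainate receptors act on both sides of the synapse, and NMDA receptors need glutamate together with a co-agonist and pass calcium. Delta receptors belong to the ionotropic family by sequence but bind no glutamate, and form a bridge across the synapse with cerebellins and presynaptic neurexins. Metabotropic receptors are coupled to G proteins: group I receptors activate phospholipase C, while group II and group III receptors are coupled to inhibitory G proteins, and group III receptors are best known from presynaptic terminals. In the tectum, retinal axons release glutamate onto both excitatory and inhibitory neurons.

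The study dissociated dissected tecta, with the torus longitudinalis attached, of untreated wild-type larvae at 6 or 7 dpf, and counted mRNA molecules (unique molecular identifiers, UMIs) per cell by droplet sequencing from the 3′ end. Larvae were pooled in each batch, so that a batch was the replicate: 4 batches at 6 dpf (5, 6, 7 and 10) and 7 at 7 dpf (1, 2, 3, 4, 8, 11 and 12). One label line of batch 8 gave 6 dpf, the others 7 dpf, and 7 dpf was used. The batches held 5073733 to 88294858 UMIs, and 53173 of 87881 barcodes were kept because they had 600 to 4000 genes, no more than 7500 UMIs and a mitochondrial share of 10% or less. No more than 107 barcodes were shared by any pair of lanes, at most 1.162% of the smaller lane.

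Cells were sorted into classes by marker UMIs, none of them from a receptor gene. These were 10141 GABAergic neurons with *gad1b*, *gad2*, *gad1a* or *slc32a1* (33 to 2826 a batch, median 2716 UMIs), 6728 glutamatergic neurons with *slc17a6a*, *slc17a6b* or *slc17a7a* (51 to 1886 a batch, median 2718 UMIs), 1007 committed precursors in 9 batches, 1286 cycling progenitors in 8, 1403 radial glia in 6 and 409 oligodendrocyte lineage cells in 8. Of 37916 neurons by markers, 5749 with UMIs of both transmitters, 8488 with neither and 6810 with 1 GABAergic marker only were left out. Markers of neighbouring habenula were at 0 to 43.6 CPM (UMIs per 1000000 UMIs of the class in a batch, median 4.08) in GABAergic and 0 to 749.7 CPM (median 5.44) in glutamatergic neurons, with both highest values in batch 2.

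A UMI in a cell can also be free RNA from other cells. Its level was read from 266 microglia and 156 erythrocytes, which should lack neuronal transcripts. The summed level of the receptor genes was also higher in batches 10 to 12, which by elimination were run on the other of 2 sequencers: 9867 to 12910 CPM against 4438 to 8444 CPM in batches 1 to 8 for GABAergic neurons, and 10170 to 13650 CPM against 4566 to 7711 CPM for glutamatergic neurons. UMIs per GABAergic neuron moved with it (3219 to 3824 against 1391 to 2394), and the part of depth or sequencer in these levels was not tested. Classes were therefore tested within batches, and levels of different genes are not ranked, as they depend on gene length and 3′ annotation. A summed level cannot tell more cells with a transcript from more transcript per cell.

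Most receptor genes passed the background in neurons. Classes are not ranked, as their share of late batches (10 to 12) differed. In cells thinned to 1000 UMIs, a GABAergic neuron had UMIs of 5.52 ± 1.09 receptor genes (SD over batches, n = 11, 3 late). A glutamatergic neuron had 4.92 ± 1.3 (n = 11, 3 late). Oligodendrocyte lineage cells had 5.12 ± 1.38 (n = 8, 1 late) and radial glia 3.73 ± 0.919 (n = 6, 3 late). Committed precursors had 1.66 ± 0.588 (n = 9, 3 late) and cycling progenitors 1.43 ± 0.998 (n = 8, 2 late), against 2.12 in microglia and erythrocytes. The mean share of cells with a UMI lay above the 95% exact binomial interval of those background cells for 35 of 41 genes in GABAergic and 32 in glutamatergic neurons, 24 in radial glia and 21 in oligodendrocyte lineage cells. In committed precursors and cycling progenitors it did so for 0 of 41. Background cells were pooled over batches of differing level, so this does not show those UMIs to be background. The intervals cover counting error only.

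Not every gene of the set rose above the background in neurons. The shares of *grik1b*, *grin2cb* and *grin3a* lay within or below the background interval in both transmitter classes; *grm1b*, *grm2a* and *grm2b* did so in GABAergic neurons only, and *grik1a*, *grin3ba*, *grin3bb*, *grm5b*, *grm6a* and *grm6b* in glutamatergic neurons only. *gria2a*, a copy of the gene for the AMPA subunit that limits calcium entry, was found in 11.0 ± 5.88% of thinned GABAergic and 12.0 ± 6.93% of glutamatergic neurons (unthinned 24.2% and 24.1%), with 4.34% (95% interval 2.59 to 6.77) in the background. The obligatory NMDA subunit gene *grin1a* reached 24.2 ± 6.00% and 22.8 ± 5.54%, with 8.68% (95% interval 6.15 to 11.8) in the background, and its copy *grin1b* 24.2 ± 7.28% and 18.8 ± 5.55%, with 9.40% (95% interval 6.77 to 12.6).

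**Figure D1:**
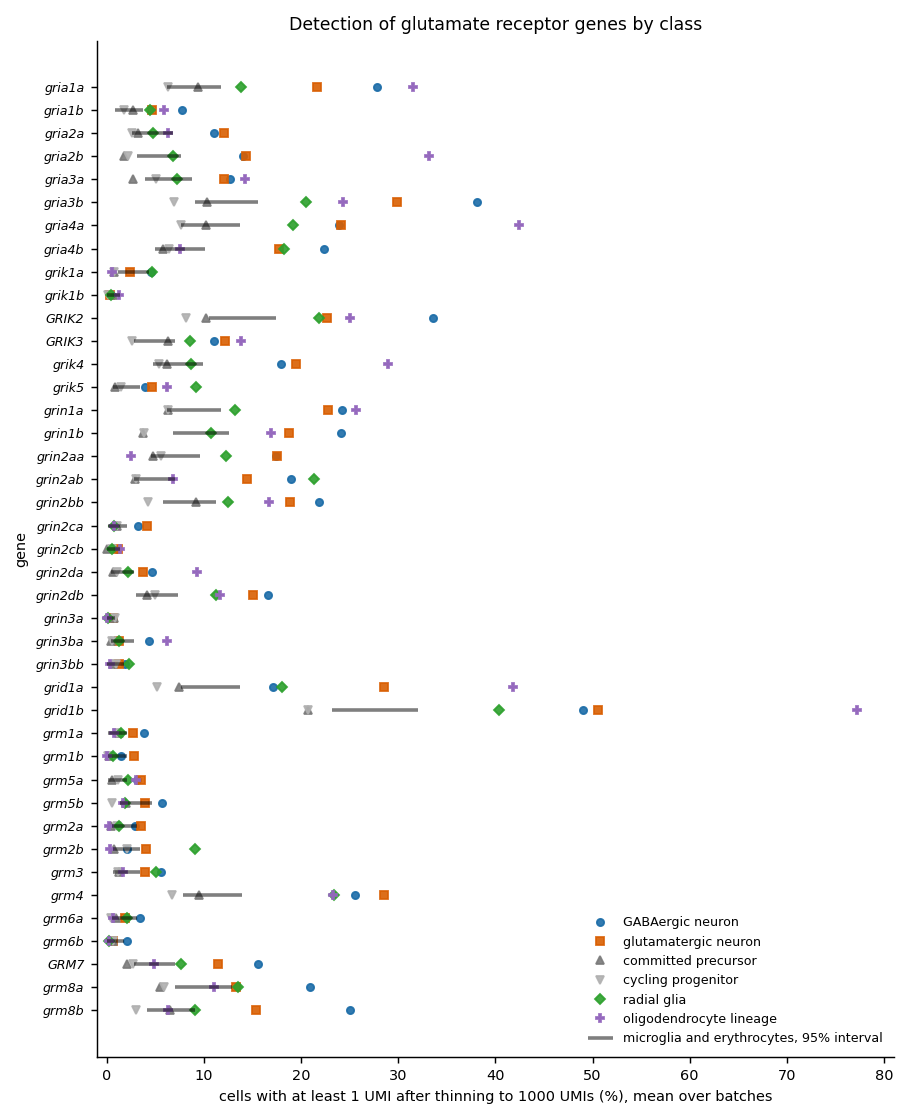
Share of cells with at least 1 UMI of each receptor gene after thinning to 1000 UMIs (x axis, %, mean over batches; y axis, gene), with a symbol per class and a bar for the 95% interval in microglia and erythrocytes. The symbols of both neuron classes lie right of the bar for most genes, and those of committed precursors and cycling progenitors for 0 of 41.

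Most receptor genes that differed between the transmitter classes were higher in GABAergic neurons. In 11 batches, 37 of the 41 genes passed the filter on low counts, and 16 were higher and 6 lower in GABAergic than in glutamatergic neurons, where 12.4% of all 8537 genes tested were higher and 15.9% lower. The median log2 difference was 0.27 over the 37 genes and -0.05 over all genes. *grik1b*, *grin2cb*, *grin3a* and *grm1b* did not pass the filter. By family, 3 of 8 AMPA, 2 of 5 kainate, 4 of 10 NMDA, 0 of 2 delta, 1 of 3 group I, 1 of 3 group II and 5 of 6 group III genes were higher. The genes that were lower were 1 kainate, 2 delta, 1 group I and 2 group II genes.

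The 3 AMPA calls were b copies, but copies were not tested against each other. In GABAergic neurons, *gria1b* ranged from 21.8 to 195 CPM (median 88.6), against 0 to 116 CPM (median 44.7) in glutamatergic neurons. *gria1b* was higher in 10 of 11 batches with overlapping ranges (log2 difference 0.76 ± 0.12, adjusted p = 4e-05). The copy *gria1a* did not pass (251 to 471 CPM against 160.2 to 451 CPM, log2 difference 0.24 ± 0.10, adjusted p = 0.058). It was higher in 11 of 11 batches. The level of *gria3b* lay between 288 and 1048 CPM (median 483) in GABAergic neurons and between 214 and 740.5 CPM (median 286) in glutamatergic neurons. *gria3b* was higher in 11 of 11 batches with overlapping ranges (log2 difference 0.52 ± 0.08, adjusted p = 3e-05). The copy *gria3a* did not pass (43.6 to 265 CPM against 49.8 to 247 CPM, log2 difference 0.27 ± 0.12, adjusted p = 0.092). It was higher in 7 of 11. *gria4b* was at 65.4 to 627 CPM (median 271) in GABAergic neurons and 80.3 to 429.5 CPM (median 189) in glutamatergic neurons. Batch by batch, *gria4b* was higher in 10 of 11 with overlapping ranges (log2 difference 0.52 ± 0.10, adjusted p = 0.00022). The copy *gria4a* did not pass (157 to 416 CPM against 199 to 497 CPM, log2 difference -0.23 ± 0.11, adjusted p = 0.12). It was lower in 6 of 11. *gria2a* (-0.06 ± 0.10, adjusted p = 0.74) and *gria2b* (-0.15 ± 0.11, adjusted p = 0.33) did not pass either.

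Kainate receptor genes were called in both directions, 2 higher and 1 lower of 5 tested. In GABAergic neurons, *grik1a*, a kainate subunit gene, ranged from 16.2 to 125 CPM (median 48.8), against 0 to 72.2 CPM (median 20.7) in glutamatergic neurons. Batch by batch, *grik1a* was higher in 10 of 11 with overlapping ranges (log2 difference 0.84 ± 0.13, adjusted p = 2.7e-05). The copy *grik1b* did not pass the filter on low counts (0 to 9.15 CPM against 0 to 6.66 CPM). The level of *GRIK2*, a principal kainate subunit gene, lay between 276 and 1181 CPM (median 488) in GABAergic neurons and between 144 and 632 CPM (median 288) in glutamatergic neurons. Batch by batch, *GRIK2* was higher in 11 of 11 with overlapping ranges (log2 difference 0.77 ± 0.11, adjusted p = 7.9e-06). *GRIK3* was called lower by the fit (39.5 to 281 against 59.5 to 426 CPM, log2 difference -0.32 ± 0.11, adjusted p = 0.031), but it was lower in 6 and higher in 5 of 11 batches, with medians of 114 CPM in GABAergic and 113 CPM in glutamatergic neurons. The genes of the auxiliary-type kainate subunits, which need a principal subunit, did not pass: *grik4* at -0.11 ± 0.11 (adjusted p = 0.51) and *grik5* at -0.17 ± 0.13 (adjusted p = 0.35).

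Of the named genes, *grin3ba*, an NMDA subunit gene whose product binds glycine and lowers the calcium permeability of NMDA receptors, had the largest fold difference. *grin3ba* was at 28.1 to 65.4 CPM (median 40.6) in GABAergic neurons and 0 to 28.0 CPM (median 14.3) in glutamatergic neurons. *grin3ba* was higher in GABAergic neurons in 11 of 11 batches and the ranges did not overlap (log2 difference 1.47 ± 0.19, adjusted p = 1.1e-06). The copy *grin3bb* also passed the threshold, higher (0 to 53.8 CPM against 0 to 35.9 CPM, log2 difference 0.71 ± 0.15, adjusted p = 0.00086). *grin3bb* was higher in 8 and lower in 2 of 11 batches. The obligatory subunit gene *grin1b* was also higher (log2 difference 0.33 ± 0.10, adjusted p = 0.011) and *grin1a* was at -0.05 ± 0.11 (adjusted p = 0.77). In GABAergic neurons, *grin2ab*, a gene for a glutamate-binding subunit, ranged from 116 to 390.5 CPM (median 218), against 82.8 to 324 CPM (median 134) in glutamatergic neurons. *grin2ab* was higher in GABAergic neurons in 11 of 11 batches with overlapping ranges (log2 difference 0.42 ± 0.11, adjusted p = 0.0052). Of the other genes for such subunits, *grin2aa* (-0.29 ± 0.13, adjusted p = 0.1), *grin2bb* (0.10 ± 0.09, adjusted p = 0.45), *grin2ca* (0.37 ± 0.17, adjusted p = 0.12), *grin2da* (-0.20 ± 0.12, adjusted p = 0.25) and *grin2db* (0.02 ± 0.10, adjusted p = 0.92) did not.

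The delta receptor genes *grid1a* and *grid1b* were lower in GABAergic neurons. The level of *grid1a*, which encodes a delta receptor found widely in the brain, lay between 128 and 400.4 CPM (median 271) in GABAergic neurons and between 224 and 883 CPM (median 334) in glutamatergic neurons. *grid1a* was lower in GABAergic neurons in 10 of 11 batches with overlapping ranges (log2 difference -0.86 ± 0.14, adjusted p = 2.2e-05). The copy *grid1b* also passed the threshold, lower (624 to 1817 CPM against 1042 to 3463 CPM, log2 difference -0.77 ± 0.12, adjusted p = 3e-05). *grid1b* was lower in 8 of 11 batches.

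Group I receptors activate phospholipase C, and here the copies of 1 gene passed the test in opposite directions. *grm5a* was at 17.5 to 43.6 CPM (median 29.3) in GABAergic neurons and 0 to 66.9 CPM (median 36.2) in glutamatergic neurons. Batch by batch, *grm5a* was lower in 9 of 11 with overlapping ranges (log2 difference -0.51 ± 0.11, adjusted p = 0.0012). In GABAergic neurons, *grm5b* ranged from 21.8 to 112 CPM (median 49.1), against 12.4 to 79.4 CPM (median 39.6) in glutamatergic neurons. Batch by batch, *grm5b* was higher in 9 of 11 with overlapping ranges (log2 difference 0.51 ± 0.11, adjusted p = 0.0014). *grm1a* did not pass (0.33 ± 0.14, adjusted p = 0.084 on the log2 scale). Group II genes were also divided. The level of *grm2a* lay between 14.2 and 97.5 CPM (median 19.7) in GABAergic neurons and between 13.4 and 61.4 CPM (median 31.5) in glutamatergic neurons. Batch by batch, *grm2a* was lower in 9 of 11 with overlapping ranges (log2 difference -1.09 ± 0.15, adjusted p = 4e-06). *grm2b* was at 9.86 to 43.6 CPM (median 20.8) in GABAergic neurons and 20.7 to 87.1 CPM (median 32.2) in glutamatergic neurons. *grm2b* was lower in GABAergic neurons in 10 of 11 batches with overlapping ranges (log2 difference -1.21 ± 0.15, adjusted p = 1.1e-06). *grm3*, of the same group, was called higher in GABAergic neurons (log2 difference 0.34 ± 0.11, adjusted p = 0.019), and was higher in 7 of 11 batches with medians of 49.9 and 46.9 CPM.

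Group III, to which the receptors of many presynaptic terminals and that of retinal ON bipolar cells (*grm6*) belong, gave calls in 1 direction. In GABAergic neurons, *grm6a* ranged from 17.5 to 87.4 CPM (median 40.6), against 0 to 64.4 CPM (median 21.3) in glutamatergic neurons. *grm6a* was higher in 10 of 11 batches with overlapping ranges (log2 difference 0.90 ± 0.14, adjusted p = 2.3e-05). The level of *grm6b* lay between 7.55 and 78.9 CPM (median 17.2) in GABAergic neurons and between 0 and 12.4 CPM (median 7.00) in glutamatergic neurons. *grm6b* was higher in 10 of 11 batches with overlapping ranges (log2 difference 1.32 ± 0.18, adjusted p = 2.7e-06). *grm8a* was at 137 to 680.2 CPM (median 245) in GABAergic neurons and 37.3 to 369 CPM (median 138) in glutamatergic neurons. Batch by batch, *grm8a* was higher in 10 of 11 with overlapping ranges (log2 difference 0.70 ± 0.12, adjusted p = 6.4e-05). In GABAergic neurons, *grm8b* ranged from 146 to 765 CPM (median 300.3), against 87.1 to 436 CPM (median 166) in glutamatergic neurons. Batch by batch, *grm8b* was higher in 11 of 11 with overlapping ranges (log2 difference 0.66 ± 0.11, adjusted p = 4.8e-05). *GRM7* also passed (0.41 ± 0.09, adjusted p = 0.0013 on the log2 scale) and *grm4* was at -0.19 ± 0.10 (adjusted p = 0.14).

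Both classes of a batch are cells of the same larvae. In batches 1 to 8 alone, 11 genes were higher and 2 lower, and *grm5a* (-0.37, adjusted p = 0.34), *grm5b* (0.36, adjusted p = 0.32), *grm2a* (-0.56, adjusted p = 0.19), *grm2b* (-0.58, adjusted p = 0.11) and *grm6a* (0.56, adjusted p = 0.17) did not pass the threshold. Without batch as a block, 2 genes were higher and 3 lower. Without cells that had a habenula or lens marker, 16 were higher and 6 lower. Torus longitudinalis and granule neuron markers, summed over 8 genes, were at 55.5 to 195 CPM in GABAergic and 209 to 2152 CPM in glutamatergic neurons. Class limits were unequal (2 GABAergic markers, 1 glutamatergic UMI), with *gad1b* in 16.9% and *slc17a6b* in 14.7% of microglia. The part of either in these differences was not tested.

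**Figure D2:**
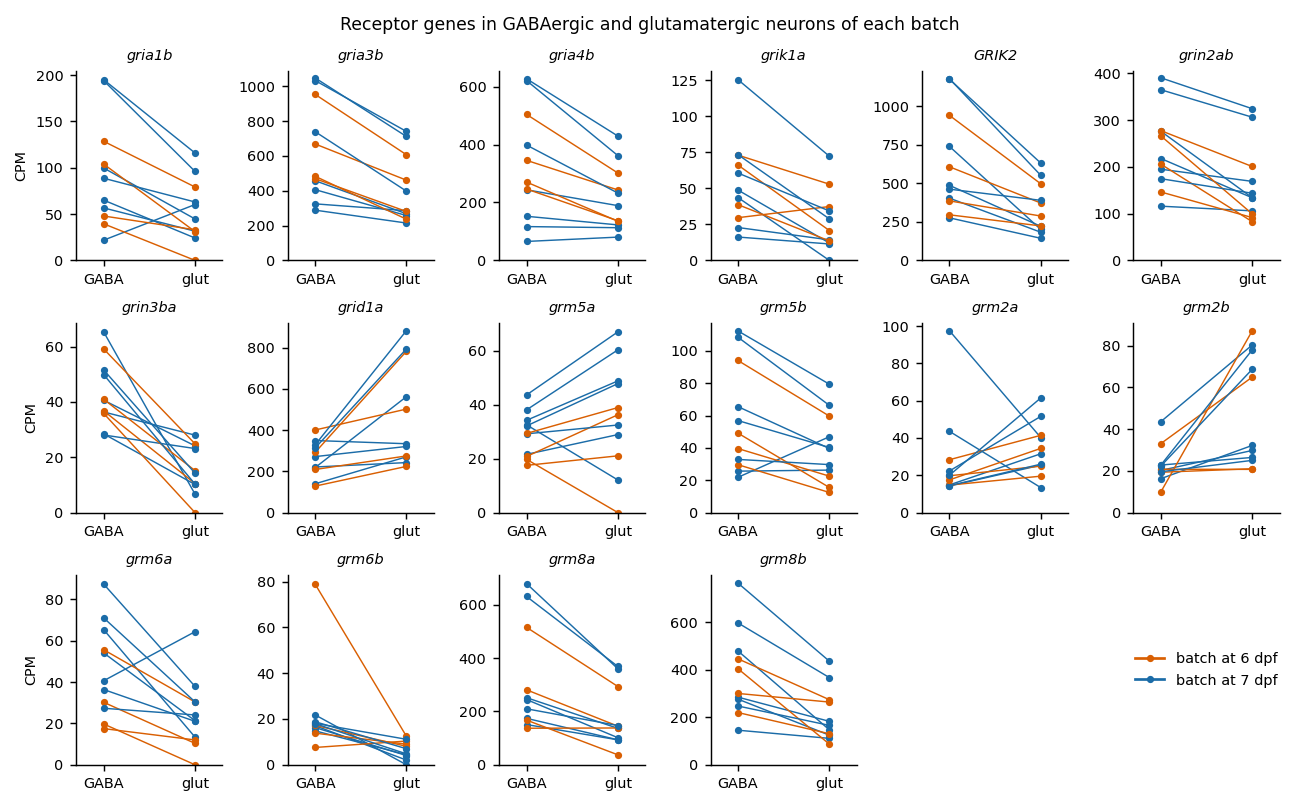
Level of each named receptor gene (y axis, CPM from 0) in GABAergic and glutamatergic neurons (x axis), with a line for each of 11 batches in the colour of its age. The lines of *grin3ba* fall from GABAergic to glutamatergic neurons in a range without overlap, and those of *grid1a*, *grm2a* and *grm2b* mostly rise.

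Genes that work with the receptors were counted in lists, and 4 genes used as class markers were left out. Of auxiliary subunit genes, 9 of 14 tested were higher in GABAergic neurons and 0 lower, where 12.4% of all genes were higher and 15.9% lower. Examples were *neto1l*, a partner of kainate receptors (log2 difference 1.18 ± 0.12, adjusted p = 3.8e-08), and the AMPA receptor regulators *cacng3b* (0.82 ± 0.11, adjusted p = 3e-06), *cacng8a* (0.77 ± 0.10, adjusted p = 2e-06) and *shisa7a* (0.63 ± 0.14, adjusted p = 0.0014). Of 22 postsynaptic scaffold genes, 8 were higher and 4 lower, the latter near the share over all genes, among them *dlg2* (0.72 ± 0.11, adjusted p = 2.5e-05), *dlgap1a* (0.74 ± 0.12, adjusted p = 3.1e-05) and *homer3b*, which links group I receptors to calcium stores (-0.83 ± 0.13, adjusted p = 2.1e-05). Of 15 signalling genes, 4 were higher and 1 lower, with *camk2a* at 0.76 ± 0.14 (adjusted p = 0.00015) and *prkcab* at 0.61 ± 0.12 (adjusted p = 0.00046). The 1 lower call was *itpr1b* (-0.57 ± 0.18, adjusted p = 0.021), but it was higher in 6 and lower in 5 of 11 batches, with medians of 73.1 CPM in GABAergic and 61.3 CPM in glutamatergic neurons.

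The cerebellin and neurexin partners of delta receptors held the largest differences of these lists. Of 8 tested, 2 were higher and 3 lower. *nrxn3a* (2.46 ± 0.20, adjusted p = 1.2e-09) and *nrxn3b* (1.16 ± 0.11, adjusted p = 7.6e-09) were higher in GABAergic neurons in 11 of 11 batches. The secreted cerebellins *cbln2b* (-2.39 ± 0.21, adjusted p = 4e-09) and *cbln1* (-1.45 ± 0.14, adjusted p = 2.3e-08) were higher in glutamatergic neurons in all 11. Of 5 genes of glutamate uptake and synthesis, the transporter gene *slc1a7b* was higher in GABAergic neurons (1.80 ± 0.12, adjusted p = 2.7e-11) and the glutamine synthetase gene *glulb* in glutamatergic neurons (-0.56 ± 0.11, adjusted p = 0.00025).

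Committed precursors, which express *neurod4* or delta ligands of Notch, had little receptor RNA. Of 35 receptor genes tested in 9 batches, 0 were higher and 34 lower than in the neurons of both classes summed, where 23.7% of all 8433 genes were higher and 28.9% lower. The median log2 difference was -1.49, against -0.03 over all genes. *grm2b* was the gene that did not pass (-0.49 ± 0.28, adjusted p = 0.15 on the log2 scale). Neuron markers in precursors were at 2518 to 8866 CPM, and in no gene did the share of cells with a UMI pass the background interval.

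The named genes of this comparison had ranges that did not overlap. The level of *gria3b* lay between 0 and 165 CPM (median 152) in committed precursors and between 244 and 927 CPM (median 613) in neurons. Batch by batch, *gria3b* was lower in 9 of 9 and the ranges did not overlap (log2 difference -1.79 ± 0.23, adjusted p = 1e-08). *gria3a* was at 0 to 47.8 CPM (median 40.1) in committed precursors and 77.0 to 253 CPM (median 127) in neurons. *gria3a* was lower in 9 of 9 batches and the ranges did not overlap (log2 difference -1.67 ± 0.24, adjusted p = 2.1e-07). In committed precursors, *grin1b* ranged from 0 to 79.2 CPM (median 55.8), against 163 to 411 CPM (median 258) in neurons. *grin1b* was lower in 9 of 9 batches and the ranges did not overlap (log2 difference -1.87 ± 0.23, adjusted p = 3.9e-09). The copy *grin1a* also passed the threshold, lower (9.60 to 106 CPM against 143 to 364 CPM, log2 difference -1.53 ± 0.22, adjusted p = 1.6e-07). The level of *grin2ab* lay between 0 and 72.9 CPM (median 38.8) in committed precursors and between 109.8 and 367 CPM (median 173) in neurons. *grin2ab* was lower in 9 of 9 batches and the ranges did not overlap (log2 difference -1.69 ± 0.23, adjusted p = 4.8e-08). The copy *grin2aa* also passed the threshold, lower (0 to 85.4 CPM against 143 to 414 CPM, log2 difference -1.49 ± 0.23, adjusted p = 7e-07).

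Delta and group III genes were likewise lower in precursors. *grid1b* was at 96.0 to 583 CPM (median 373) in committed precursors and 932 to 2428 CPM (median 1580) in neurons. Batch by batch, *grid1b* was lower in 9 of 9 and the ranges did not overlap (log2 difference -1.78 ± 0.22, adjusted p = 6.8e-09). The copy *grid1a* also passed the threshold, lower (32.5 to 147 CPM against 171 to 534 CPM, log2 difference -1.56 ± 0.21, adjusted p = 4.8e-08). In committed precursors, *grm8b* ranged from 16.2 to 123 CPM (median 51.6), against 125 to 646 CPM (median 264) in neurons. Batch by batch, *grm8b* was lower in 9 of 9 and the ranges did not overlap (log2 difference -1.75 ± 0.24, adjusted p = 6.9e-08). The copy *grm8a* also passed the threshold, lower (9.60 to 117 CPM against 110 to 565 CPM, log2 difference -1.50 ± 0.21, adjusted p = 1.3e-07).

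In cycling progenitors, marked by *mki67*, *top2a* and *pcna*, 0 of 36 genes tested were higher and 32 lower, where 30.7% of all 9059 genes were higher and 30% lower. The median was -1.54, against 0.04 over all genes. *grin2da* (-0.40 ± 0.27, adjusted p = 0.21), *grm1a* (-0.90 ± 0.42, adjusted p = 0.067), *grm2b* (-0.51 ± 0.42, adjusted p = 0.29) and *grm6b* (0.85 ± 0.38, adjusted p = 0.057) did not pass the threshold. Batch 10 stood apart from the other 7 batches: its progenitors held 5443 CPM of receptor genes and 3729 CPM of neuron markers, against 357 to 2780 CPM and 879 to 2258 CPM elsewhere. The part of neuronal RNA in that batch was not tested.

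The named genes were lower in each of the 8 batches. The level of *gria3b* lay between 14.6 and 328 CPM (median 45.2) in cycling progenitors and between 244 and 927 CPM (median 386) in neurons. Batch by batch, *gria3b* was lower in 8 of 8 with overlapping ranges (log2 difference -2.10 ± 0.22, adjusted p = 1e-07). The copy *gria3a* also passed the threshold, lower (9.11 to 70.9 CPM against 66.6 to 253 CPM, log2 difference -1.32 ± 0.23, adjusted p = 4.1e-05). *grin1b* was at 9.10 to 112 CPM (median 21.2) in cycling progenitors and 128 to 411 CPM (median 251) in neurons. *grin1b* was lower in 8 of 8 batches and the ranges did not overlap (log2 difference -2.31 ± 0.25, adjusted p = 1.4e-07). The copy *grin1a* also passed the threshold, lower (10.7 to 129.9 CPM against 143 to 369 CPM, log2 difference -1.75 ± 0.28, adjusted p = 1.7e-05). In cycling progenitors, *grid1a* ranged from 15.6 to 205 CPM (median 30.7), against 171 to 496 CPM (median 261) in neurons. *grid1a* was lower in 8 of 8 batches with overlapping ranges (log2 difference -1.92 ± 0.20, adjusted p = 1.2e-07). The level of *grid1b* lay between 80.4 and 1524 CPM (median 153) in cycling progenitors and between 932 and 2215 CPM (median 1580) in neurons. *grid1b* was lower in 8 of 8 batches with overlapping ranges (log2 difference -1.88 ± 0.30, adjusted p = 1.8e-05). *GRM7*, a group III receptor gene, was at 4.88 to 101 CPM (median 17.7) in cycling progenitors and 96.6 to 292 CPM (median 132) in neurons. Batch by batch, *GRM7* was lower in 8 of 8 with overlapping ranges (log2 difference -2.02 ± 0.26, adjusted p = 1.4e-06). In cycling progenitors, *grm8b* ranged from 5.86 to 171 CPM (median 23.3), against 125 to 646 CPM (median 225) in neurons. Batch by batch, *grm8b* was lower in 8 of 8 with overlapping ranges (log2 difference -2.25 ± 0.29, adjusted p = 1.1e-06). The copy *grm8a* also passed the threshold, lower (2.93 to 225 CPM against 110 to 565 CPM, log2 difference -1.55 ± 0.27, adjusted p = 4.1e-05). Without batch 10 each of these 6 named calls still passed the threshold.

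Partner genes were also mostly lower in both precursor classes. Of auxiliary subunit genes, 14 were lower in committed precursors and 13 in cycling progenitors, and 0 were higher in either, where 28.9% and 30% of all genes were lower and 23.7% and 30.7% higher. In committed precursors the examples were *cacng7b* (-2.62 ± 0.35, adjusted p = 3e-08), *cnih2* (-2.05 ± 0.32, adjusted p = 6.4e-07), *cacng2b* (-1.96 ± 0.25, adjusted p = 1.7e-08) and *cacng8a* (-1.95 ± 0.27, adjusted p = 4.9e-08). Scaffold genes were lower in 18 and 16 cases and higher in 2 and 2, signalling genes lower in 12 and 11 and higher in 1 and 0, and delta receptor partners lower in 7 and 7 and higher in 0 and 1. The signalling gene that was higher in committed precursors was *itpr1a*, a calcium release channel gene (1.85 ± 0.29, adjusted p = 7.8e-07, higher in 7 of 9 batches). Glial-type uptake genes went the other way: *slc1a3a* was higher in committed precursors (2.48 ± 0.30, adjusted p = 3.5e-09) and in cycling progenitors (4.54 ± 0.30, adjusted p = 2.1e-10), and *glulb* in both (1.83 ± 0.18, adjusted p = 1.2e-11 and 1.91 ± 0.28, adjusted p = 6.9e-06).

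Radial glia, the glial stem cells of the tectum, had most receptor genes at lower levels than neurons. In 6 batches, 2 of 40 genes tested were higher, 28 lower and 10 did not pass the threshold, where 25.1% of all 10832 genes were higher and 25.5% lower. The median log2 difference was -0.89, against -0.01 over all genes. The neuron markers, summed over 12 genes, were at 1828 to 4453 CPM in radial glia and 8465 to 15040 CPM in glutamatergic neurons.

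The genes that were higher belong to group II and to the auxiliary-type kainate subunits. The level of *grm2b*, a group II receptor gene, lay between 40.0 and 209.9 CPM (median 74.7) in radial glia and between 20 and 46.3 CPM (median 30.3) in neurons. Batch by batch, *grm2b* was higher in 6 of 6 with overlapping ranges (log2 difference 1.91 ± 0.23, adjusted p = 3.5e-07). The copy *grm2a* also passed the threshold, lower (0 to 21.7 CPM against 16.5 to 35.0 CPM, log2 difference -0.87 ± 0.31, adjusted p = 0.024). After thinning, *grm2b* was found in 9.05 ± 5.11% of radial glia, 2.05 ± 0.956% of GABAergic and 4.06 ± 1.59% of glutamatergic neurons (unthinned 18.2%, 4.28% and 7.71%), and in 1.69% (95% interval 0.681 to 3.44) of background cells. *grik5* was at 36.4 to 133 CPM (median 80.8) in radial glia and 42.8 to 77.9 CPM (median 55.5) in neurons. *grik5* was higher in radial glia in 5 of 6 batches with overlapping ranges (log2 difference 0.70 ± 0.19, adjusted p = 0.0036). The call for *grik5* was lost without the filter on low counts (0.51, adjusted p = 0.069) and in batches 1 to 8 alone (0.62, adjusted p = 0.065), where 1 gene was higher in radial glia; with a stricter class gate 4 were.

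Genes that were lower in radial glia came from several families. In radial glia, *grik4*, an auxiliary-type kainate subunit gene, ranged from 62.1 to 180.2 CPM (median 88.1), against 179 to 521 CPM (median 336) in neurons. *grik4* was lower in 6 of 6 batches with overlapping ranges (log2 difference -1.42 ± 0.22, adjusted p = 1.9e-05). The level of *grin2ca*, a gene for a glutamate-binding NMDA subunit, lay between 3.03 and 44.0 CPM (median 11.4) in radial glia and between 29.6 and 53.6 CPM (median 42.8) in neurons. *grin2ca* was lower in 6 of 6 batches with overlapping ranges (log2 difference -1.61 ± 0.32, adjusted p = 0.00026). The copy *grin2cb* did not pass the threshold (0 to 12.0 CPM against 2.77 to 14.1 CPM, log2 difference -0.56 ± 0.44, adjusted p = 0.31). *grin3ba* was at 1.52 to 26.4 CPM (median 7.31) in radial glia and 26.3 to 37.7 CPM (median 28.5) in neurons. Batch by batch, *grin3ba* was lower in 6 of 6 with overlapping ranges (log2 difference -1.59 ± 0.36, adjusted p = 0.00079). In radial glia, *grin3bb* ranged from 1.52 to 30.8 CPM (median 9.31), against 16.6 to 45.9 CPM (median 25.1) in neurons. Batch by batch, *grin3bb* was lower in 6 of 6 with overlapping ranges (log2 difference -1.38 ± 0.34, adjusted p = 0.0018). The level of *grm5b*, a group I receptor gene, lay between 7.58 and 31.4 CPM (median 25.2) in radial glia and between 31.9 and 100.1 CPM (median 59.9) in neurons. Batch by batch, *grm5b* was lower in 6 of 6 and the ranges did not overlap (log2 difference -1.28 ± 0.23, adjusted p = 0.0001). The copy *grm5a* did not pass the threshold (4.40 to 36.0 CPM against 18.8 to 46.1 CPM, log2 difference -0.59 ± 0.30, adjusted p = 0.11). *GRM7* was at 40.9 to 106 CPM (median 59.1) in radial glia and 121 to 292 CPM (median 182) in neurons. *GRM7* was lower in radial glia in 6 of 6 batches and the ranges did not overlap (log2 difference -1.32 ± 0.22, adjusted p = 2.9e-05). In cells thinned to 1000 UMIs the call for *grin3bb* was lost (-0.89, adjusted p = 0.12). In batches 1 to 8 alone, 16 genes were lower.

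Of auxiliary subunit genes, 15 of 16 were lower in radial glia and 0 higher, where 25.5% of all genes were lower and 25.1% higher, with *cacng7a* (-1.76 ± 0.35, adjusted p = 0.00021) and *cacng8a* (-1.64 ± 0.26, adjusted p = 1.9e-05) as examples beside *cnih2* (-1.60 ± 0.28, adjusted p = 5.4e-05) and *cacng2b* (-1.50 ± 0.23, adjusted p = 1.6e-05). Scaffold genes were lower in 13 and higher in 2 of 23 cases, where *homer3b* was higher (1.44 ± 0.21, adjusted p = 4.8e-06) and *dlg4b* lower (-1.97 ± 0.44, adjusted p = 0.00074). Of 16 signalling genes 3 were higher and 7 lower, with the protein kinase C gene *prkcaa* at 1.84 ± 0.23 (adjusted p = 8.9e-07). Uptake genes were divided, with 2 higher and 4 lower of 7: *glulb* was higher (3.91 ± 0.23, adjusted p = 3.7e-12), as was *slc1a3a* (2.59 ± 0.36, adjusted p = 3.8e-06), and *slc1a7b* lower (-1.76 ± 0.26, adjusted p = 9.6e-06). Of the 8 delta receptor partners 7 were lower and 0 higher.

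Oligodendrocyte lineage cells, gated on genes such as *olig2*, *sox10* and *cspg4*, had receptor genes on both sides of the neuronal level. Of 25 genes tested in 8 batches, 9 were higher (36%) and 7 lower (28%). Over all 3642 genes, 28.7% were higher and 28.2% lower, so that neither share was far from that of all genes. The median log2 difference was 0.04 over the 25 genes tested, against 0.00 over all genes. Their neuron markers were at 3291 to 4222 CPM, against 8465 to 15040 CPM in glutamatergic neurons. The cells held a median of 6 of 12 neuron markers (3 in microglia), where a neuron needed 5. The part of neuronal RNA in these receptor levels was not tested. Only 30 to 69 cells a batch stood behind these levels, and 16 of the 41 genes did not pass the filter on low counts.

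AMPA receptor genes split by copy. In oligodendrocyte lineage cells, *gria2b* ranged from 208 to 687 CPM (median 378), against 104 to 238 CPM (median 124) in neurons. *gria2b* was higher in 8 of 8 batches with overlapping ranges (log2 difference 1.53 ± 0.18, adjusted p = 2.6e-07). The level of *gria2a* lay between 19.7 and 122 CPM (median 44.7) in oligodendrocyte lineage cells and between 56.3 and 232 CPM (median 84.2) in neurons. *gria2a* was lower in 8 of 8 batches with overlapping ranges (log2 difference -0.78 ± 0.21, adjusted p = 0.0035). *gria4a* was at 415 to 1708 CPM (median 514) in oligodendrocyte lineage cells and 209 to 406 CPM (median 277) in neurons. Batch by batch, *gria4a* was higher in 8 of 8 and the ranges did not overlap (log2 difference 1.27 ± 0.18, adjusted p = 2.9e-06). In oligodendrocyte lineage cells, *gria4b* ranged from 37.3 to 231 CPM (median 64.8), against 76.8 to 556 CPM (median 203) in neurons. Batch by batch, *gria4b* was lower in 8 of 8 with overlapping ranges (log2 difference -1.31 ± 0.20, adjusted p = 1e-05). Each gene had its own test, and the call for *gria2a* was lost with cells of at most 4000 UMIs (-0.62, adjusted p = 0.15) and without the replicate block (-0.80, adjusted p = 0.067). *gria1a* was also higher (0.68 ± 0.17, adjusted p = 0.0018) and *gria3b* lower (-0.50 ± 0.17, adjusted p = 0.015).

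Kainate and delta receptor genes that passed were higher in oligodendrocyte lineage cells. The level of *grik4* lay between 185 and 1020 CPM (median 376) in oligodendrocyte lineage cells and between 109 and 521 CPM (median 183) in neurons. Batch by batch, *grik4* was higher in 8 of 8 with overlapping ranges (log2 difference 1.04 ± 0.18, adjusted p = 4.6e-05). *grik5* was at 32.6 to 143 CPM (median 58.0) in oligodendrocyte lineage cells and 27.5 to 77.9 CPM (median 39.3) in neurons. *grik5* was higher in 7 of 8 batches with overlapping ranges (log2 difference 0.75 ± 0.22, adjusted p = 0.0067). Without the filter on low counts the call for *grik5* was lost (0.34, adjusted p = 0.49). In oligodendrocyte lineage cells, *grid1a* ranged from 448 to 1123 CPM (median 565), against 171 to 487 CPM (median 261) in neurons. *grid1a* was higher in 8 of 8 batches with overlapping ranges (log2 difference 1.15 ± 0.19, adjusted p = 2e-05). The copy *grid1b* also passed the threshold, higher (1374 to 4443 CPM against 932 to 2400 CPM, log2 difference 0.57 ± 0.19, adjusted p = 0.013). *GRIK3* passed as well (0.64 ± 0.21, adjusted p = 0.014), and both *grid1b* and *GRIK3* were higher in 6 of 8 batches. After thinning, *grid1b* was found in 77.2 ± 8.41% of oligodendrocyte lineage cells, 49.1 ± 10.1% of GABAergic and 50.6 ± 8.83% of glutamatergic neurons, and in 27.5% (95% interval 23.2 to 32.0) of background cells (unthinned 93.0%, 65.1% and 66.8% in the first 3). For *gria4a* the thinned shares were 42.5 ± 15.3%, 23.9 ± 5.57% and 24.1 ± 4.97%, with 10.4% (95% interval 7.60 to 13.7) in the background.

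Of 7 NMDA genes tested 1 was higher and 2 lower, and of 4 group III genes 2 were lower, beside 28.2% lower over all genes. The level of *grin2da*, a gene for a glutamate-binding NMDA subunit, lay between 32.0 and 231 CPM (median 82.0) in oligodendrocyte lineage cells and between 15.4 and 68.5 CPM (median 31.1) in neurons. *grin2da* was higher in 8 of 8 batches with overlapping ranges (log2 difference 1.56 ± 0.25, adjusted p = 1.8e-05). The copy *grin2db* did not pass the threshold (62.8 to 272 CPM against 126 to 319 CPM, log2 difference -0.35 ± 0.19, adjusted p = 0.13). *grin2aa* was at 12.4 to 80.1 CPM (median 30.2) in oligodendrocyte lineage cells and 113 to 414 CPM (median 176) in neurons. Batch by batch, *grin2aa* was lower in 8 of 8 and the ranges did not overlap (log2 difference -2.39 ± 0.26, adjusted p = 8.6e-08). In oligodendrocyte lineage cells, *grin2ab* ranged from 12.4 to 143 CPM (median 50.9), against 109.8 to 367 CPM (median 169) in neurons. Batch by batch, *grin2ab* was lower in 8 of 8 with overlapping ranges (log2 difference -1.49 ± 0.22, adjusted p = 5.7e-06). *grin2da* was thus higher and both *grin2a* copies lower. The level of *GRM7* lay between 24.9 and 136 CPM (median 51.1) in oligodendrocyte lineage cells and between 96.6 and 292 CPM (median 129.6) in neurons. Batch by batch, *GRM7* was lower in 8 of 8 with overlapping ranges (log2 difference -0.93 ± 0.21, adjusted p = 0.00059). *grm8b* was at 24.9 to 292 CPM (median 79.8) in oligodendrocyte lineage cells and 125 to 646 CPM (median 217) in neurons. *grm8b* was lower in 8 of 8 batches with overlapping ranges (log2 difference -1.28 ± 0.21, adjusted p = 1.8e-05). The copy *grm8a* did not pass the threshold (23.1 to 286 CPM against 110 to 565 CPM, log2 difference -0.46 ± 0.22, adjusted p = 0.078).

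Batch 12 stood apart among oligodendrocyte lineage cells, with 33 cells and 15760 CPM of receptor genes, against 5690 to 7942 CPM in the other 7 batches. Its neuron markers (3898 CPM) lay within the range of the others, and its Purkinje cell markers (503 CPM) above their range of 37.3 to 163 CPM. Without batch 12 each of the 12 named calls still passed the threshold. With cells of at most 4000 UMIs, 5 genes were higher in oligodendrocyte lineage cells, and with cells thinned to 1000 UMIs 4 were lower.

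**Figure D3:**
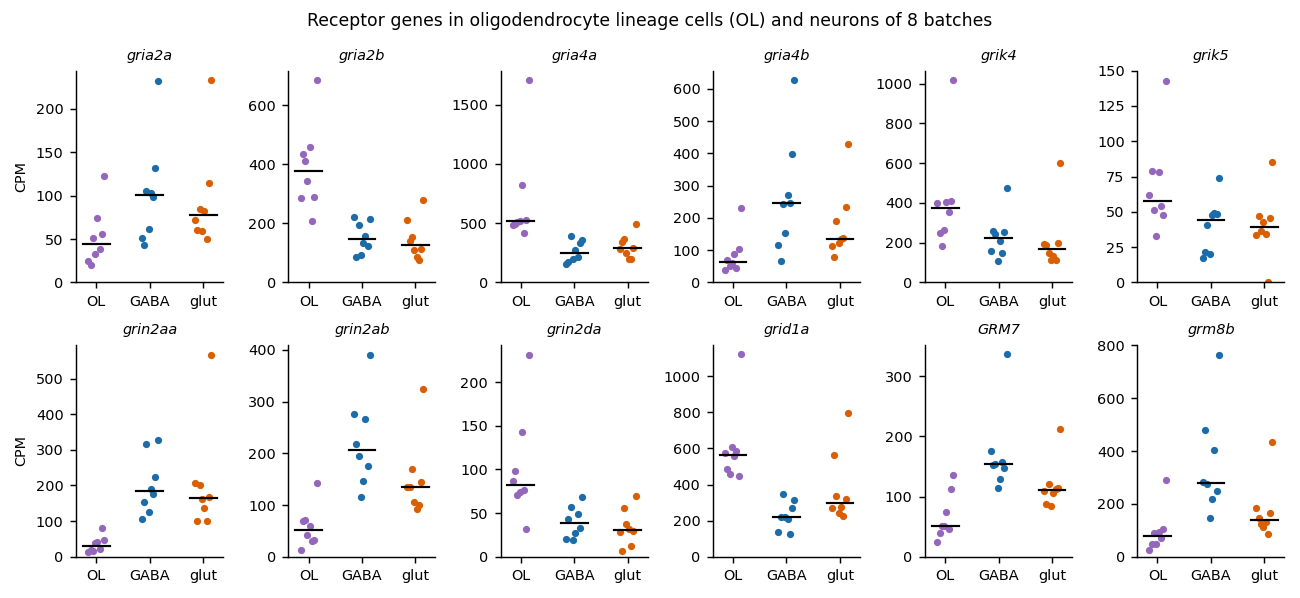
Level of named receptor genes (y axis, CPM from 0) in oligodendrocyte lineage cells, GABAergic neurons and glutamatergic neurons (x axis) of the same 8 batches. Each batch is a point and the bar is the median of the class. *gria2b*, *gria4a* and *grin2da* lie highest in oligodendrocyte lineage cells in most batches, and *grin2aa* and *grin2ab* lowest.

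Partner genes of oligodendrocyte lineage cells were mostly lower than in neurons. Scaffold genes were lower in 12 of 14 cases and higher in 0, where 28.2% of all genes were lower and 28.7% higher, with *shank1* (-1.79 ± 0.20, adjusted p = 8.4e-08), *grip2b* (-1.79 ± 0.21, adjusted p = 3.2e-07) and *shank3a* (-1.64 ± 0.23, adjusted p = 2.9e-06). Of 8 auxiliary subunit genes 4 were lower and 1 higher, the kainate partner *neto1l* (1.44 ± 0.21, adjusted p = 4e-06), which was higher in 8 of 8 batches. The AMPA partner *cacng2b* was at -1.35 ± 0.26 (adjusted p = 0.00012). Of 10 signalling genes 8 were lower and *prkcaa* was higher (2.84 ± 0.25, adjusted p = 3e-09). Both uptake and synthesis genes that passed, of 3 tested, were higher, *glulb* (2.27 ± 0.22, adjusted p = 1.3e-08) and *glsa* (0.74 ± 0.25, adjusted p = 0.015, higher in 6 of 8 batches). Of 6 delta receptor partners 4 were lower, with *nrxn3a* at -2.33 ± 0.19 (adjusted p = 7.7e-10), and *nrxn2b* was higher (0.71 ± 0.22, adjusted p = 0.0079, higher in 6 of 8 batches).

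**Figure D4:**
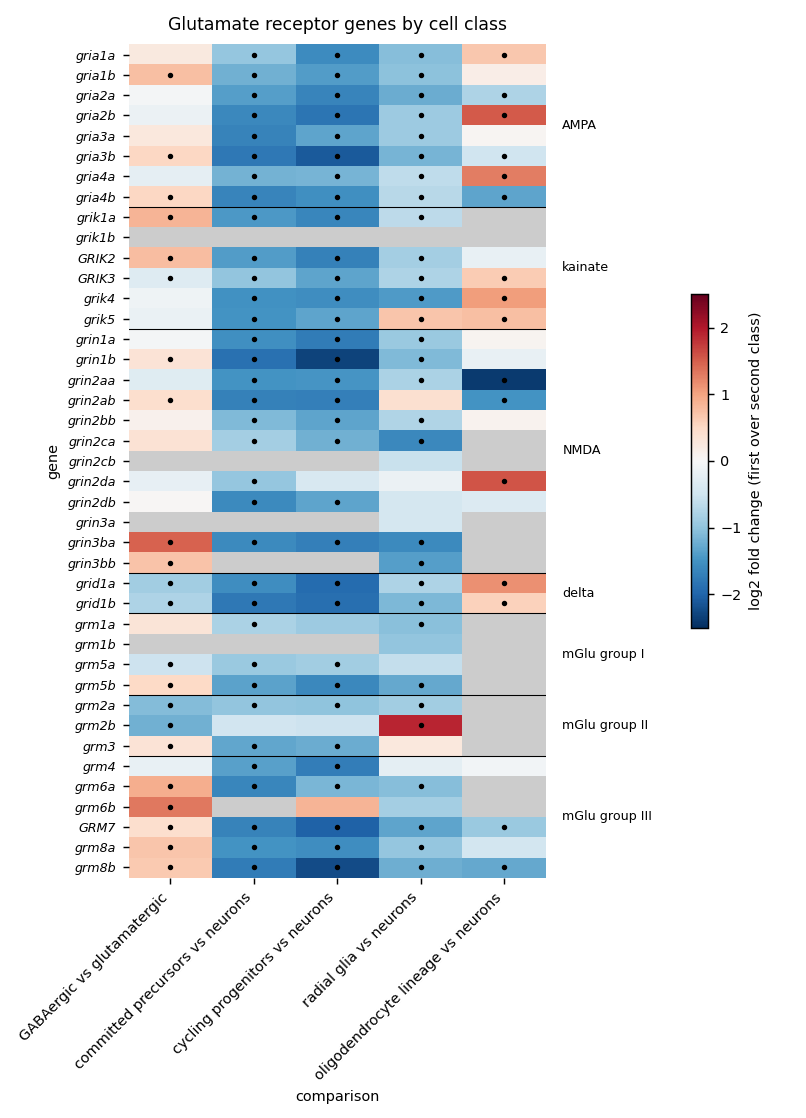
Fitted log2 fold change of each receptor gene (y axis) in the 5 class comparisons (x axis), in colour. The columns of committed precursors and cycling progenitors are below 0 for nearly all genes, and those of GABAergic neurons and oligodendrocyte lineage cells hold both signs.

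No receptor gene differed between 6 and 7 dpf past the threshold. Over GABAergic and glutamatergic neurons summed, with the sequencer as a covariate, edgeR called 0 of 40 receptor genes and 0 of all 12269 genes (0% called), with 1 receptor gene at an unadjusted p under 0.05, and 350 higher and 439 lower among all genes. DESeq2 called 0 receptor genes, with 3 at an unadjusted p under 0.05, and 1 higher and 5 lower among all. The gene was *grm6a*, at 11.0 to 45.2 CPM in 4 batches at 6 dpf and 25.6 to 69.5 CPM in 7 at 7 dpf (log2 difference 0.69 ± 0.28, unadjusted p = 0.024, adjusted p = 0.74 in edgeR). The ranges overlapped. Summed over families, AMPA genes were at 1298 to 2582 CPM at 6 dpf and 1103 to 3254 CPM at 7 dpf, and the 2 delta genes at 1311 to 2252 and 1166 to 2962 CPM.

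The difference between the transmitter classes was also not found to change with age. The interaction of class and age passed for 0 of 37 receptor genes and 0 of 8537 genes in edgeR (0% called), with 57 above and 88 below at an unadjusted p under 0.05, and for 0 genes in DESeq2. *gria4a* had the one receptor gene value under an unadjusted 0.05 (-0.45 ± 0.21, unadjusted p = 0.045, adjusted p = 1 in edgeR).

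Receptor genes also differed within each transmitter arm. Gated neurons had at least 2 UMIs of a gene that the study names or lists for neuron types, and none of the other transmitter. They were set against marked neurons of the same arm with 0 UMIs of that gene. Of 20 such gates, 16 had at least 10 gated cells in 5 or more batches; *slc17a7a*, *chata*, *esrrb* and *INSM2* had 3 or 4 and were not fitted. A gate is 1 gene and not a neuron type, and a cell can be in several. In the glutamatergic arm 47.9 to 65.2% of gated cells of the fitted gates had a transmitter marker UMI themselves, and in the GABAergic arm 85.2 to 95.5%, while all comparison cells had one. How that difference in choice acts on the receptor genes was not tested. Counts of calls that moved by over 1.5 times when 1 batch was left out, or under another setting, are given for each gate. Levels in gated cells precede those in the others throughout.

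In the glutamatergic arm, group I genes were higher in the *itpr1b* gate. The gate of *itpr1b*, which encodes a calcium release channel that acts downstream of group I receptors, held 521 cells beside 5834 others in 6 fitted batches, with medians of 2929 and 2643 UMIs. Of 39 receptor genes tested, 14 passed the threshold (7 higher and 7 lower), where 10.9% of all genes did. *grid1b* (delta family) was at 94.4 to 2003 CPM (median 1246) in gated cells against 1211 to 3721 CPM (median 2531) in the others, lower in 6 of 6 batches, with ranges that overlapped (log2 difference -1.23 ± 0.21, adjusted p = 8.7e-06). *GRIK3*, of the kainate family, was at 37.8 to 281 CPM (median 112) against 57.1 to 442 CPM (median 214), and was lower in 5 of 6 batches with overlapping ranges (log2 difference -0.96 ± 0.21, adjusted p = 0.00079). *grin2da* (NMDA family) was at 18.6 to 48.0 CPM (median 25.8) against 27.6 to 76.9 CPM (median 43.1), lower in 6 of 6 batches, with ranges that overlapped (log2 difference -0.84 ± 0.26, adjusted p = 0.019). *grm5a*, of the group I family, was at 80.5 to 397 CPM (median 228) against 18.7 to 42.0 CPM (median 30.7), and was higher in 6 of 6 batches with ranges that did not overlap (log2 difference 2.76 ± 0.20, adjusted p = 1.8e-18). *grm1b* (group I family) was at 0 to 661 CPM (median 114) against 13.3 to 30.0 CPM (median 23.2), higher in 5 of 6 batches, with ranges that overlapped (log2 difference 2.46 ± 0.24, adjusted p = 4.1e-13). *grik1a*, of the kainate family, was at 0 to 247 CPM (median 58.7) against 11.2 to 60.3 CPM (median 31.0), and was higher in 4 of 6 batches with overlapping ranges (log2 difference 1.16 ± 0.24, adjusted p = 0.00032). In *itpr1b* cells the fitted log2 differences of the other copies were -0.77 ± 0.19 for *grid1a* (adjusted p = 0.0036), -0.67 ± 0.21 for *grin2db* (adjusted p = 0.021), 0.05 ± 0.23 for *grm5b* (adjusted p = 0.95) and 1.08 ± 0.22 for *grm1a* (adjusted p = 0.00028). *grik1b* did not pass the filter on low counts. Calls for the *itpr1b* gate were lost for *grik1a* without batch 11 (0.60, adjusted p = 0.25) and *grin2da* without batch 10 or 11 (-0.84 to -0.77, adjusted p = 0.068 to 0.11). In DESeq2, *itpr1b* cells did not pass the threshold for *grik1a* (0.94, adjusted p = 0.2). When *itpr1b* cells were gated at 1 UMI or more, the threshold was not passed by *GRIK3* (-0.22, adjusted p = 0.24), *grin2da* (-0.20, adjusted p = 0.48) and *grid1b* (-0.34, adjusted p = 0.052). *itpr1b* calls at higher levels numbered 4 without batch 11 and 4 without the filter on low counts. *itpr1b* calls at lower levels numbered 4 without batch 12 and 1 at 1 UMI or more. Summed Purkinje cell markers were at a median of 683 CPM in gated and 644 CPM in other cells.

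The delta gene *grid1b* and the kainate gene *GRIK3* were also lower in the *sp5l* gate. The gate of *sp5l*, a zinc finger transcription factor gene, held 461 cells beside 6124 others in 7 fitted batches, with medians of 3153 and 2670 UMIs. Of 35 receptor genes tested, 10 passed the threshold (1 higher and 9 lower), where 7.98% of all genes did. *grid1b* (delta family) was at 339 to 1662 CPM (median 771) in gated cells against 1079 to 3745 CPM (median 2407) in the others, lower in 7 of 7 batches, with ranges that overlapped (log2 difference -1.57 ± 0.17, adjusted p = 3.7e-18). *GRIK3*, of the kainate family, was at 0 to 202 CPM (median 126) against 59.1 to 453 CPM (median 156), and was lower in 5 of 7 batches with overlapping ranges (log2 difference -1.21 ± 0.19, adjusted p = 1.5e-08). *GRM7* (group III family) was at 0 to 158 CPM (median 76.4) against 85.4 to 244 CPM (median 115), lower in 6 of 7 batches, with ranges that overlapped (log2 difference -1.05 ± 0.19, adjusted p = 1.4e-06). *grik1a*, of the kainate family, was at 0 to 131 CPM (median 34.1) against 12.2 to 66.1 CPM (median 27.3), and was higher in 4 of 7 batches with overlapping ranges (log2 difference 0.69 ± 0.23, adjusted p = 0.033). In *sp5l* cells the fitted log2 difference of the other copy was -0.57 ± 0.17 for *grid1a* (adjusted p = 0.013). *grik1b* did not pass the filter on low counts. The call for the *sp5l* gate was lost for *grik1a* without batch 10 or 11 (0.52 to 0.57, adjusted p = 0.3 to 0.4). In DESeq2, *sp5l* cells did not pass the threshold for *grik1a* (0.44, adjusted p = 0.68). When *sp5l* cells were gated at 1 UMI or more, the threshold was not passed by *grik1a* (0.52, adjusted p = 0.065). *sp5l* cells lost the call for *grik1a* (0.56, adjusted p = 0.24) without the filter on low counts. *sp5l* calls at higher levels numbered 0 without batch 10 or 11, 0 in DESeq2 and 0 without the filter on low counts.

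With the filter on low counts, NMDA subunit genes were called on both sides in the *atf5b* gate. The gate of *atf5b*, a leucine zipper transcription factor gene, held 942 cells beside 5734 others in 8 fitted batches, with medians of 2848 and 2648 UMIs. Of 38 receptor genes tested, 11 passed the threshold (4 higher and 7 lower), where 15.6% of all genes did. *grin2ca* (NMDA family) was at 0 to 173 CPM (median 9.69) in gated cells against 21.3 to 79.1 CPM (median 41.1) in the others, lower in 6 of 8 batches, with ranges that overlapped (log2 difference -1.73 ± 0.28, adjusted p = 2.5e-07). *grm5a*, of the group I family, was at 0 to 28.9 CPM (median 18.6) against 9.30 to 63.8 CPM (median 39.2), and was lower in 8 of 8 batches with overlapping ranges (log2 difference -1.42 ± 0.24, adjusted p = 7.4e-07). *grm1b* (group I family) was at 0 to 55.7 CPM (median 2.34) against 8.38 to 79.1 CPM (median 33.2), lower in 7 of 8 batches, with ranges that overlapped (log2 difference -1.39 ± 0.29, adjusted p = 0.00014). *grin1b*, of the NMDA family, was at 245 to 523 CPM (median 329) against 141 to 355 CPM (median 199), and was higher in 8 of 8 batches with overlapping ranges (log2 difference 0.54 ± 0.12, adjusted p = 0.00041). *grin2ab* (NMDA family) was at 139 to 423 CPM (median 181) against 88.5 to 309 CPM (median 156), higher in 7 of 8 batches, with ranges that overlapped (log2 difference 0.52 ± 0.13, adjusted p = 0.0019). *grm8a*, of the group III family, was at 69.3 to 599 CPM (median 243) against 91.7 to 358 CPM (median 146), and was higher in 6 of 8 batches with overlapping ranges (log2 difference 0.44 ± 0.13, adjusted p = 0.012). In *atf5b* cells the fitted log2 differences of the other copies were -0.42 ± 0.30 for *grin2cb* (adjusted p = 0.39), -0.06 ± 0.18 for *grm5b* (adjusted p = 0.89), -0.63 ± 0.23 for *grm1a* (adjusted p = 0.052), -0.26 ± 0.13 for *grin1a* (adjusted p = 0.16), -0.35 ± 0.14 for *grin2aa* (adjusted p = 0.063) and 0.36 ± 0.13 for *grm8b* (adjusted p = 0.042). Calls for the *atf5b* gate were lost for *grin2ab* without batch 10 (0.40, adjusted p = 0.057) and *grm8a* without batch 11 or 12 (0.34 to 0.40, adjusted p = 0.089 to 0.18). In DESeq2, *atf5b* cells did not pass the threshold for *grm1b* (-2.12, adjusted p = 0.11) and *grm8a* (0.43, adjusted p = 0.077). *atf5b* calls lost without the filter on low counts were *grin1b* (0.37, adjusted p = 0.19), *grin2ab* (0.34, adjusted p = 0.31) and *grm8a* (0.25, adjusted p = 0.54). *atf5b* calls at higher levels numbered 2 without batch 10, 11 or 12, 2 in DESeq2 and 0 without the filter on low counts. *atf5b* calls at lower levels numbered 4 without batch 10, 3 in DESeq2 and 4 at 1 UMI or more.

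*tfap2e* gave the widest glutamatergic gate. The gate of *tfap2e*, an AP-2 transcription factor gene, held 1952 cells beside 5003 others in 10 fitted batches, with medians of 2724 and 2590 UMIs. Of 34 receptor genes tested, 15 passed the threshold (2 higher and 13 lower), where 25.1% of all genes did. *GRIK3* (kainate family) was at 0 to 235 CPM (median 80.8) in gated cells against 63.8 to 489 CPM (median 145) in the others, lower in 9 of 10 batches, with ranges that overlapped (log2 difference -0.84 ± 0.12, adjusted p = 1.6e-07). *grm2a*, of the group II family, was at 0 to 46.3 CPM (median 14.9) against 17.9 to 64.8 CPM (median 36.6), and was lower in 8 of 10 batches with overlapping ranges (log2 difference -0.82 ± 0.17, adjusted p = 0.00028). *grin2ca* (NMDA family) was at 0 to 146 CPM (median 17.2) against 22.3 to 194 CPM (median 40.5), lower in 8 of 10 batches, with ranges that overlapped (log2 difference -0.71 ± 0.19, adjusted p = 0.0047). *grm8b*, of the group III family, was at 0 to 745 CPM (median 175) against 83.4 to 379 CPM (median 171), and was higher in 4 of 10 batches with overlapping ranges (log2 difference 0.45 ± 0.14, adjusted p = 0.014). *grin2db* (NMDA family) was at 102 to 435 CPM (median 219) against 27.8 to 305 CPM (median 152), higher in 6 of 10 batches, with ranges that overlapped (log2 difference 0.28 ± 0.11, adjusted p = 0.045). The other copies were at -0.42 ± 0.15 (*grm2b*, adjusted p = 0.035), -0.15 ± 0.12 (*grm8a*, adjusted p = 0.42) and -0.35 ± 0.15 (*grin2da*, adjusted p = 0.088). *grin2cb* did not pass the filter on low counts. Calls for the *tfap2e* gate were lost for *grin2ca* without batch 12 (-0.48, adjusted p = 0.099), *grin2db* without batch 3, 5, 6, 7, 8, 10, 11 or 12 (0.21 to 0.31, adjusted p = 0.051 to 0.24) and *grm8b* without batch 10, 11 or 12 (0.31 to 0.37, adjusted p = 0.12 to 0.16). In DESeq2, *tfap2e* cells did not pass the threshold for *grin2ca* (-0.79, adjusted p = 0.069), *grin2db* (0.24, adjusted p = 0.11) and *grm8b* (0.19, adjusted p = 0.69). When *tfap2e* cells were gated at 1 UMI or more, the threshold was not passed by *grin2db* (0.19, adjusted p = 0.14). *tfap2e* calls lost without the filter on low counts were *grin2db* (0.20, adjusted p = 0.5) and *grm8b* (0.34, adjusted p = 0.093). *tfap2e* calls at higher levels numbered 1 without batch 3, 5, 6, 7 or 8, 0 without batch 10, 11 or 12, 0 in DESeq2 and 0 without the filter on low counts. *tfap2e* calls at lower levels numbered 8 without batch 4 or 12 and 7 without batch 10.

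Group III genes were divided in a gate that also held torus markers. The gate of *neurod6b*, a bHLH transcription factor gene, held 271 cells beside 6278 others in 7 fitted batches, with medians of 3498 and 2678 UMIs. Of 35 receptor genes tested, 8 passed the threshold (2 higher and 6 lower), where 6.42% of all genes did. *grm8a* (group III family) was at 0 to 228 CPM (median 93.1) in gated cells against 89.7 to 389.5 CPM (median 151) in the others, lower in 6 of 7 batches, with ranges that overlapped (log2 difference -1.32 ± 0.23, adjusted p = 7.3e-07). *GRIK2*, of the kainate family, was at 27.4 to 355 CPM (median 198) against 148 to 654 CPM (median 399), and was lower in 7 of 7 batches with overlapping ranges (log2 difference -1.27 ± 0.21, adjusted p = 1.1e-07). *gria1b* (AMPA family) was at 0 to 83.2 CPM (median 41.0) against 33.3 to 119 CPM (median 59.5), lower in 5 of 7 batches, with ranges that overlapped (log2 difference -1.03 ± 0.30, adjusted p = 0.012). *grm6a*, of the group III family, was at 0 to 123 CPM (median 78.8) against 12.8 to 33.1 CPM (median 24.5), and was higher in 5 of 7 batches with overlapping ranges (log2 difference 1.57 ± 0.28, adjusted p = 1.4e-06). *grm5b* (group I family) was at 0 to 166 CPM (median 67.8) against 22.4 to 74.2 CPM (median 40.4), higher in 4 of 7 batches, with ranges that overlapped (log2 difference 0.85 ± 0.26, adjusted p = 0.017). The other copies were at 0.19 ± 0.20 (*grm8b*, adjusted p = 0.78), -0.51 ± 0.20 (*gria1a*, adjusted p = 0.13) and -0.48 ± 0.33 (*grm5a*, adjusted p = 0.56). *grm6b* did not pass the filter on low counts. Calls for the *neurod6b* gate were lost for *gria1b* without batch 10 or 12 (-0.86 to -0.74, adjusted p = 0.21 to 0.36) and *grm5b* without batch 10, 11 or 12 (0.66 to 0.78, adjusted p = 0.19 to 0.35). In DESeq2, *neurod6b* cells did not pass the threshold for *gria1b* (-1.04, adjusted p = 0.16) and *grm5b* (0.60, adjusted p = 0.61). When *neurod6b* cells were gated at 1 UMI or more, the threshold was not passed by *gria1b* (-0.53, adjusted p = 0.074) and *grm5b* (0.41, adjusted p = 0.2). *neurod6b* cells lost the call for *grm5b* (0.57, adjusted p = 0.41) without the filter on low counts. *neurod6b* calls at higher levels numbered 1 without batch 10, 11 or 12, 1 in DESeq2, 1 without the filter on low counts and 4 at 1 UMI or more. *neurod6b* calls at lower levels numbered 3 without batch 10 or 12 and 3 in DESeq2. Torus longitudinalis and granule neuron markers were at a median of 1061 CPM in gated and 261 CPM in other cells, and their part was not tested.

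Receptor genes that passed in the *barhl1a* gate were lower in it throughout. The gate of *barhl1a*, a homeobox gene, held 1713 cells beside 5150 others in 11 fitted batches, with medians of 2833 and 2594 UMIs. Of 34 receptor genes tested, 19 passed the threshold (0 higher and 19 lower), where 27.5% of all genes did. *grid1b* (delta family) was at 189 to 2347 CPM (median 681) in gated cells against 1263 to 3923 CPM (median 2511) in the others, lower in 11 of 11 batches, with ranges that overlapped (log2 difference -1.27 ± 0.13, adjusted p = 1.5e-09). *grin2da*, of the NMDA family, was at 0 to 53.7 CPM (median 21.3) against 0 to 78.7 CPM (median 44.1), and was lower in 10 of 11 batches with overlapping ranges (log2 difference -0.71 ± 0.17, adjusted p = 0.0015). *grm2a* (group II family) was at 0 to 58.7 CPM (median 18.1) against 15.4 to 65.0 CPM (median 37.5), lower in 11 of 11 batches, with ranges that overlapped (log2 difference -0.69 ± 0.17, adjusted p = 0.0022). The other copies were at -0.54 ± 0.11 (*grid1a*, adjusted p = 0.00042), -0.67 ± 0.12 (*grin2db*, adjusted p = 3.9e-05) and 0.25 ± 0.15 (*grm2b*, adjusted p = 0.24). They were also lower in *zic2a* cells. The gate of *zic2a*, a zinc finger gene, held 307 cells beside 6302 others in 9 fitted batches, with medians of 2929 and 2706 UMIs. Of 22 receptor genes tested, 16 passed the threshold (0 higher and 16 lower), where 23.3% of all genes did. *grin2db* (NMDA family) was at 0 to 156 CPM (median 40.7) in gated cells against 50.8 to 341 CPM (median 179) in the others, lower in 9 of 9 batches, with ranges that overlapped (log2 difference -1.56 ± 0.20, adjusted p = 2.6e-06). *grin2aa*, of the NMDA family, was at 0 to 219 CPM (median 81.3) against 118 to 594 CPM (median 206), and was lower in 9 of 9 batches with overlapping ranges (log2 difference -1.44 ± 0.22, adjusted p = 3.3e-05). *grin2ab* (NMDA family) was at 0 to 189 CPM (median 52.2) against 89.1 to 334 CPM (median 141), lower in 9 of 9 batches, with ranges that overlapped (log2 difference -1.24 ± 0.21, adjusted p = 9.5e-05). *grin2da* did not pass the filter on low counts. *zic2a* calls at higher levels numbered 2 without batch 7, 1 without the filter on low counts and 1 without cells with habenula or lens markers. Torus longitudinalis and granule neuron markers were at a median of 3067 CPM in *zic2a* cells and 169 CPM in the others, and their part was not tested.

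The smallest fitted gate was also of the glutamatergic arm. The gate of *bhlhe23*, a bHLH gene, held 84 cells beside 6572 others in 5 fitted batches, with medians of 2800 and 2713 UMIs. Of 30 receptor genes tested, 6 passed the threshold (1 higher and 5 lower), where 3.91% of all genes did. *grm8b* (group III family) was at 44.4 to 192 CPM (median 72.3) in gated cells against 113 to 441 CPM (median 274) in the others, lower in 4 of 5 batches, with ranges that overlapped (log2 difference -1.69 ± 0.38, adjusted p = 0.00082). *gria1a*, of the AMPA family, was at 72.3 to 203 CPM (median 168) against 157 to 453 CPM (median 365), and was lower in 4 of 5 batches with overlapping ranges (log2 difference -1.20 ± 0.32, adjusted p = 0.0079). *grin2aa* (NMDA family) was at 48.1 to 266 CPM (median 155) against 140.1 to 571 CPM (median 348), lower in 5 of 5 batches, with ranges that overlapped (log2 difference -1.11 ± 0.31, adjusted p = 0.017). *grm6a*, of the group III family, was at 0 to 279.9 CPM (median 44.4) against 12.6 to 35.4 CPM (median 27.5), and was higher in 3 of 5 batches with overlapping ranges (log2 difference 1.94 ± 0.44, adjusted p = 0.0012). The other copies were at -1.06 ± 0.34 (*grm8a*, adjusted p = 0.049), 0.99 ± 0.38 (*gria1b*, adjusted p = 0.16) and -0.51 ± 0.33 (*grin2ab*, adjusted p = 0.6). *grm6b* did not pass the filter on low counts. Calls for the *bhlhe23* gate were lost for *gria1a* without batch 10 or 11 (-1.17 to -1.02, adjusted p = 0.053 to 0.084), *grin2aa* without batch 4 or 11 (-1.01 to -1.01, adjusted p = 0.094) and *grm6a* without batch 10 (1.14, adjusted p = 0.53). In DESeq2, *bhlhe23* cells did not pass the threshold for *gria1a* (-1.13, adjusted p = 0.092), *grin2aa* (-1.05, adjusted p = 0.087), *grm6a* (1.38, adjusted p = 0.47) and *grm8b* (-1.60, adjusted p = 0.13). When *bhlhe23* cells were gated at 1 UMI or more, the threshold was not passed by *gria1a* (-0.32, adjusted p = 0.35). *bhlhe23* cells lost the call for *grm6a* (1.38, adjusted p = 0.12) without the filter on low counts. *bhlhe23* calls at higher levels numbered 0 without batch 12, 0 in DESeq2, 0 without the filter on low counts and 0 without cells with habenula or lens markers. *bhlhe23* calls at lower levels numbered 2 without batch 4, 10 or 11, 1 in DESeq2 and 10 without the filter on low counts. A similar gate by size had AMPA and group III genes at lower levels. The gate of *onecut1*, a homeodomain gene, held 145 cells beside 6462 others in 6 fitted batches, with medians of 3309 and 2699 UMIs. Of 30 receptor genes tested, 8 passed the threshold (0 higher and 8 lower), where 11% of all genes did. *gria2b* (AMPA family) was at 21.1 to 101 CPM (median 63.2) in gated cells against 86.0 to 285 CPM (median 153) in the others, lower in 6 of 6 batches, with ranges that overlapped (log2 difference -1.45 ± 0.31, adjusted p = 0.00095). *grm4*, of the group III family, was at 87.9 to 454 CPM (median 175) against 251 to 857 CPM (median 425), and was lower in 6 of 6 batches with overlapping ranges (log2 difference -1.20 ± 0.24, adjusted p = 0.00054). *grin2bb* (NMDA family) was at 87.9 to 239.7 CPM (median 128) against 124 to 446 CPM (median 256), lower in 6 of 6 batches, with ranges that overlapped (log2 difference -1.02 ± 0.25, adjusted p = 0.0054). In *onecut1* cells the fitted log2 difference of the other copy was -0.76 ± 0.28 for *gria2a* (adjusted p = 0.073). The call for the *onecut1* gate was lost for *grin2bb* without batch 10 or 11 (-0.91 to -0.87, adjusted p = 0.057). *onecut1* calls at higher levels numbered 1 without batch 10 and 1 at 1 UMI or more. *onecut1* calls at lower levels numbered 4 without batch 10, 3 without batch 11, 5 without batch 12, 3 in DESeq2 and 18 without the filter on low counts.

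In the GABAergic arm, neuropeptide gates had opposite values for some genes. The gate of *cort*, the neuropeptide gene of cortistatin, held 339 cells beside 9619 others in 6 fitted batches, with medians of 2584 and 2706 UMIs. Of 35 receptor genes tested, 10 passed the threshold (2 higher and 8 lower), where 7.89% of all genes did. *grm6a* (group III family) was at 0 to 37.7 CPM (median 13.1) in gated cells against 17.3 to 90.6 CPM (median 43.9) in the others, lower in 5 of 6 batches, with ranges that overlapped (log2 difference -2.30 ± 0.39, adjusted p = 1.5e-05). *grm2b*, of the group II family, was at 0 to 13.7 CPM (median 3.92) against 19.8 to 32.3 CPM (median 21.5), and was lower in 6 of 6 batches with ranges that did not overlap (log2 difference -1.61 ± 0.48, adjusted p = 0.022). *GRIK2* (kainate family) was at 205 to 561 CPM (median 400.1) against 278 to 1212 CPM (median 714), lower in 6 of 6 batches, with ranges that overlapped (log2 difference -0.95 ± 0.16, adjusted p = 1e-05). *grid1a*, of the delta family, was at 234 to 926 CPM (median 624) against 196 to 308 CPM (median 268), and was higher in 6 of 6 batches with overlapping ranges (log2 difference 1.22 ± 0.17, adjusted p = 1.6e-07). *grid1b* (delta family) was at 1074 to 2703 CPM (median 1820) against 588 to 1803 CPM (median 1335), higher in 5 of 6 batches, with ranges that overlapped (log2 difference 0.44 ± 0.14, adjusted p = 0.044). *grm6b* and *grm2a* did not pass the filter on low counts. Calls for the *cort* gate were lost for *grid1b* without batch 8, 10, 11 or 12 (0.39 to 0.46, adjusted p = 0.063 to 0.18) and *grm2b* without batch 10 (-1.77, adjusted p = 0.056). In DESeq2, *cort* cells did not pass the threshold for *grm2b* (-1.62, adjusted p = 0.12). When *cort* cells were gated at 1 UMI or more, the threshold was not passed by *grm6a* (-0.63, adjusted p = 0.061). *cort* cells lost the call for *grid1b* (0.24, adjusted p = 0.39) without the filter on low counts. *cort* calls at higher levels numbered 1 without batch 10 or 11 and 1 without the filter on low counts. *cort* calls at lower levels numbered 5 without batch 5 or 11, 3 without batch 12, 3 in DESeq2 and 2 at 1 UMI or more.

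*GRIK2* and *grm6a*, lower in the *cort* gate, were higher in the *npy* gate. The gate of *npy*, the gene of neuropeptide Y, held 384 cells beside 9570 others in 7 fitted batches, with medians of 2984 and 2696 UMIs. Of 34 receptor genes tested, 14 passed the threshold (10 higher and 4 lower), where 7.84% of all genes did. *GRIK3* (kainate family) was at 0 to 118 CPM (median 48.7) in gated cells against 57.7 to 291 CPM (median 126) in the others, lower in 7 of 7 batches, with ranges that overlapped (log2 difference -1.33 ± 0.21, adjusted p = 2e-06). *grid1a*, of the delta family, was at 0 to 194 CPM (median 122) against 151 to 332 CPM (median 279), and was lower in 7 of 7 batches with overlapping ranges (log2 difference -1.16 ± 0.18, adjusted p = 2e-06). *grik4* (kainate family) was at 58.3 to 231 CPM (median 178) against 107 to 491 CPM (median 258), lower in 7 of 7 batches, with ranges that overlapped (log2 difference -0.83 ± 0.16, adjusted p = 0.00018). *grm3*, of the group II family, was at 106 to 313 CPM (median 200.5) against 19.2 to 108 CPM (median 43.3), and was higher in 7 of 7 batches with overlapping ranges (log2 difference 1.75 ± 0.18, adjusted p = 4.1e-11). *grm6a* (group III family) was at 0 to 369.9 CPM (median 44.5) against 17.0 to 73.5 CPM (median 54.3), higher in 4 of 7 batches, with ranges that overlapped (log2 difference 1.38 ± 0.23, adjusted p = 8.9e-06). *GRIK2*, of the kainate family, was at 438 to 4038 CPM (median 991) against 271 to 1106 CPM (median 459.6), and was higher in 7 of 7 batches with overlapping ranges (log2 difference 1.22 ± 0.17, adjusted p = 2.4e-07). In *npy* cells the fitted log2 difference of the other copy was -0.20 ± 0.15 for *grid1b* (adjusted p = 0.56). *grm6b* did not pass the filter on low counts. The call for the *npy* gate was lost for *grm6a* without batch 12 (0.88, adjusted p = 0.059). In DESeq2, *npy* cells did not pass the threshold for *grm6a* (0.97, adjusted p = 0.19). When *npy* cells were gated at 1 UMI or more, the threshold was not passed by *GRIK3* (-0.39, adjusted p = 0.054), *grik4* (-0.38, adjusted p = 0.07) and *grid1a* (-0.04, adjusted p = 0.94). *npy* calls at higher levels numbered 6 without batch 8, 5 without batch 11 or 12, 6 in DESeq2, 3 without the filter on low counts and 4 at 1 UMI or more. *npy* calls at lower levels numbered 0 at 1 UMI or more.

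The group II genes *grm2a* and *grm2b* were higher in the *chodl* gate. The gate of *chodl*, which encodes the membrane protein chondrolectin, held 321 cells beside 9674 others in 5 fitted batches, with medians of 2817 and 2695 UMIs. Of 37 receptor genes tested, 8 passed the threshold (3 higher and 5 lower), where 5.14% of all genes did. *GRIK3* (kainate family) was at 54.1 to 162 CPM (median 82.9) in gated cells against 109 to 289 CPM (median 234) in the others, lower in 4 of 5 batches, with ranges that overlapped (log2 difference -1.23 ± 0.22, adjusted p = 5.4e-06). *grm6a*, of the group III family, was at 0 to 51.4 CPM (median 26.0) against 18 to 88.9 CPM (median 57.6), and was lower in 5 of 5 batches with overlapping ranges (log2 difference -0.98 ± 0.31, adjusted p = 0.037). *gria4a* (AMPA family) was at 108 to 287 CPM (median 188) against 273 to 426 CPM (median 332), lower in 5 of 5 batches, with ranges that overlapped (log2 difference -0.92 ± 0.20, adjusted p = 0.00029). *grm2a*, of the group II family, was at 0 to 176 CPM (median 57.8) against 14.2 to 16.6 CPM (median 15.6), and was higher in 4 of 5 batches with overlapping ranges (log2 difference 2.60 ± 0.28, adjusted p = 1.9e-16). *GRIK2* (kainate family) was at 595 to 3792 CPM (median 2787) against 386 to 1088 CPM (median 877), higher in 5 of 5 batches, with ranges that overlapped (log2 difference 1.35 ± 0.24, adjusted p = 2e-06). *grm2b*, of the group II family, was at 0 to 111 CPM (median 41.5) against 18.9 to 31.2 CPM (median 19.9), and was higher in 4 of 5 batches with overlapping ranges (log2 difference 1.28 ± 0.30, adjusted p = 0.001). The other copies were at -0.15 ± 0.42 (*grm6b*, adjusted p = 0.95) and -0.08 ± 0.20 (*gria4b*, adjusted p = 0.95). Calls for the *chodl* gate were lost for *grm2b* without batch 11 (0.69, adjusted p = 0.56) and *grm6a* without batch 10, 11 or 12 (-1.23 to -0.83, adjusted p = 0.066 to 0.44). In DESeq2, *chodl* cells did not pass the threshold for *grm2b* (1.17, adjusted p = 0.16) and *grm6a* (-0.97, adjusted p = 0.21). When *chodl* cells were gated at 1 UMI or more, the threshold was not passed by *gria4a* (-0.39, adjusted p = 0.055). *chodl* calls at lower levels numbered 3 without batch 10, 2 without batch 11 and 9 without the filter on low counts.

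The third neuropeptide gate had counts of calls that moved with single batches. The gate of *npb*, the gene of neuropeptide B, held 289 cells beside 9679 others in 6 fitted batches, with medians of 3014 and 2700 UMIs. Of 32 receptor genes tested, 10 passed the threshold (5 higher and 5 lower), where 10% of all genes did. *grin2ca* (NMDA family) was at 0 to 49.1 CPM (median 6.08) in gated cells against 29.8 to 60.5 CPM (median 42.7) in the others, lower in 5 of 6 batches, with ranges that overlapped (log2 difference -2.42 ± 0.43, adjusted p = 1.1e-06). *grid1a*, of the delta family, was at 59.5 to 353 CPM (median 137) against 143 to 340.5 CPM (median 285), and was lower in 4 of 6 batches with overlapping ranges (log2 difference -1.34 ± 0.21, adjusted p = 1.6e-08). *gria1a* (AMPA family) was at 52.9 to 265 CPM (median 199) against 273 to 484 CPM (median 392), lower in 6 of 6 batches, with ranges that did not overlap (log2 difference -1.10 ± 0.20, adjusted p = 1.3e-06). *gria1b*, of the AMPA family, was at 0 to 389 CPM (median 178) against 46.7 to 191 CPM (median 111), and was higher in 5 of 6 batches with overlapping ranges (log2 difference 0.87 ± 0.18, adjusted p = 5.2e-05). *grin2ab* (NMDA family) was at 123 to 722 CPM (median 541) against 148 to 379 CPM (median 269), higher in 4 of 6 batches, with ranges that overlapped (log2 difference 0.68 ± 0.18, adjusted p = 0.003). *grm8a*, of the group III family, was at 159 to 1029 CPM (median 643) against 136 to 664 CPM (median 370.4), and was higher in 5 of 6 batches with overlapping ranges (log2 difference 0.64 ± 0.19, adjusted p = 0.012). The other copies were at -0.12 ± 0.20 (*grid1b*, adjusted p = 0.83), -0.42 ± 0.19 (*grin2aa*, adjusted p = 0.18) and -0.48 ± 0.19 (*grm8b*, adjusted p = 0.1). *grin2cb* did not pass the filter on low counts. Calls for the *npb* gate were lost for *grin2ab* without batch 11 or 12 (0.56 to 0.60, adjusted p = 0.091 to 0.13) and *grm8a* without batch 10, 11 or 12 (0.56 to 0.62, adjusted p = 0.052 to 0.15). In DESeq2, *npb* cells did not pass the threshold for *gria1b* (0.75, adjusted p = 0.081) and *grin2ab* (0.65, adjusted p = 0.067). *npb* calls lost without the filter on low counts were *gria1b* (0.67, adjusted p = 0.082), *grin2ab* (0.46, adjusted p = 0.32) and *grm8a* (0.44, adjusted p = 0.38). *npb* calls at higher levels numbered 8 without batch 5, 2 without batch 10, 1 without batch 11 or 12, 2 in DESeq2, 1 without the filter on low counts and 8 without cells with habenula or lens markers. *npb* calls at lower levels numbered 3 without batch 10.

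The widest GABAergic gate had 0 receptor genes called at a higher level. The gate of *tal1*, a bHLH gene of midbrain GABAergic neurons, held 5188 cells beside 4552 others in 11 fitted batches, with medians of 2830 and 2244 UMIs. Of 32 receptor genes tested, 23 passed the threshold (0 higher and 23 lower), where 31.5% of all genes did. *grm8b* (group III family) was at 92.3 to 632 CPM (median 164) in gated cells against 187 to 836 CPM (median 409) in the others, lower in 11 of 11 batches, with ranges that overlapped (log2 difference -0.77 ± 0.12, adjusted p = 1.8e-05). *gria3a*, of the AMPA family, was at 24.9 to 206 CPM (median 92.4) against 0 to 314 CPM (median 175), and was lower in 10 of 11 batches with overlapping ranges (log2 difference -0.76 ± 0.11, adjusted p = 1.3e-05). *grik4* (kainate family) was at 68.6 to 418 CPM (median 179.8) against 115 to 564 CPM (median 276), lower in 10 of 11 batches, with ranges that overlapped (log2 difference -0.66 ± 0.11, adjusted p = 7.7e-05). In *tal1* cells the fitted log2 differences of the other copies were -0.42 ± 0.13 for *grm8a* (adjusted p = 0.015) and -0.42 ± 0.12 for *gria3b* (adjusted p = 0.0082). In a second wide gate the share of receptor genes called was below that of all genes. The gate of *cxcl14*, a chemokine gene, held 2584 cells beside 6756 others in 11 fitted batches, with medians of 2792 and 2584 UMIs. Of 31 receptor genes tested, 9 passed the threshold (4 higher and 5 lower), where 33.5% of all genes did. *GRIK2* (kainate family) was at 144 to 1154 CPM (median 444) in gated cells against 280.3 to 1236 CPM (median 492.6) in the others, lower in 9 of 11 batches, with ranges that overlapped (log2 difference -0.39 ± 0.10, adjusted p = 0.0022). *GRIK3*, of the kainate family, was at 19.9 to 226 CPM (median 142) against 33.1 to 308 CPM (median 110.3), and was lower in 7 of 11 batches with overlapping ranges (log2 difference -0.36 ± 0.10, adjusted p = 0.0049). *grin2da* (NMDA family) was at 0 to 58.3 CPM (median 35.6) against 17.4 to 78.5 CPM (median 33.1), lower in 8 of 11 batches, with ranges that overlapped (log2 difference -0.33 ± 0.12, adjusted p = 0.037). *gria1b*, of the AMPA family, was at 79.5 to 252 CPM (median 125) against 0 to 166 CPM (median 79.6), and was higher in 11 of 11 batches with overlapping ranges (log2 difference 0.51 ± 0.09, adjusted p = 4.6e-05). *grid1b* (delta family) was at 1028 to 2495 CPM (median 1840) against 628 to 1702 CPM (median 1348), higher in 11 of 11 batches, with ranges that overlapped (log2 difference 0.47 ± 0.10, adjusted p = 0.00027). *grin2ca*, of the NMDA family, was at 0 to 86.6 CPM (median 35.9) against 15.7 to 69.6 CPM (median 47.6), and was higher in 6 of 11 batches with overlapping ranges (log2 difference 0.45 ± 0.18, adjusted p = 0.046). The other copies were at -0.30 ± 0.09 (*grin2db*, adjusted p = 0.01), -0.30 ± 0.09 (*gria1a*, adjusted p = 0.011) and -0.03 ± 0.10 (*grid1a*, adjusted p = 0.87). *grin2cb* did not pass the filter on low counts. Calls were lost for *grin2ca* without batch 5, 6, 8 or 11 (0.23 to 0.46, adjusted p = 0.0504 to 0.41) and *grin2da* without batch 1, 2, 3, 5, 6 or 7 (-0.33 to -0.29, adjusted p = 0.0503 to 0.075). In DESeq2, *cxcl14* cells did not pass the threshold for *grin2ca* (0.30, adjusted p = 0.44) and *grin2da* (-0.32, adjusted p = 0.058). Gated at 1 UMI or more, they did not pass it for *GRIK3* (-0.10, adjusted p = 0.4), *grin2ca* (0.37, adjusted p = 0.083) and *grin2da* (-0.19, adjusted p = 0.26). *cxcl14* cells lost the call for *grin2da* (-0.32, adjusted p = 0.16) without the filter on low counts. *cxcl14* calls numbered 2 higher without batch 8 or 10, and 2 lower without batch 10 or 11 or at 1 UMI or more.

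In the last gate *gria1b* was lower, and the opposite call of *gria4b* rested on the filter on low counts. The gate of *calb2b*, which encodes the calcium-binding protein calretinin, held 1029 cells beside 8573 others in 9 fitted batches, with medians of 3105 and 2633 UMIs. Of 34 receptor genes tested, 14 passed the threshold (2 higher and 12 lower), where 14.6% of all genes did. *grm8a* (group III family) was at 34.4 to 363 CPM (median 144) in gated cells against 139.5 to 722 CPM (median 249) in the others, lower in 9 of 9 batches, with ranges that overlapped (log2 difference -0.96 ± 0.12, adjusted p = 6.2e-07). *gria1b*, of the AMPA family, was at 0 to 115 CPM (median 54.1) against 46.6 to 209.6 CPM (median 97.8), and was lower in 8 of 9 batches with overlapping ranges (log2 difference -0.92 ± 0.13, adjusted p = 4.9e-06). *grm3* (group II family) was at 0 to 66.0 CPM (median 31.0) against 23.3 to 126 CPM (median 51.2), lower in 9 of 9 batches, with ranges that overlapped (log2 difference -0.78 ± 0.15, adjusted p = 0.00038). *grik1a*, of the kainate family, was at 0 to 170.5 CPM (median 40.4) against 14.4 to 115 CPM (median 59.4), and was higher in 5 of 9 batches with overlapping ranges (log2 difference 0.50 ± 0.16, adjusted p = 0.028). *gria4b* (AMPA family) was at 128 to 967 CPM (median 378) against 107 to 575 CPM (median 344), higher in 7 of 9 batches, with ranges that overlapped (log2 difference 0.50 ± 0.11, adjusted p = 0.0014). The other copies were at -0.06 ± 0.10 (*grm8b*, adjusted p = 0.78), 0.23 ± 0.11 (*gria1a*, adjusted p = 0.15) and 0.02 ± 0.12 (*gria4a*, adjusted p = 0.95). *grik1b* did not pass the filter on low counts. The call for the *calb2b* gate was lost for *grik1a* without batch 10, 11 or 12 (0.37 to 0.49, adjusted p = 0.097 to 0.2). In DESeq2, *calb2b* cells did not pass the threshold for *grik1a* (0.15, adjusted p = 0.85). *calb2b* calls lost without the filter on low counts were *gria4b* (0.37, adjusted p = 0.071) and *grik1a* (0.42, adjusted p = 0.13). *calb2b* calls at higher levels numbered 4 without batch 1 or 8, 1 without batch 10, 11 or 12, 1 in DESeq2, 0 without the filter on low counts and 4 at 1 UMI or more. *calb2b* calls at lower levels numbered 7 without batch 10 or 11.

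Across the 16 gates, the number of calls differed between receptor genes, and no such count was made over all genes. *GRIK3* was lower in 10 of 16 and higher in 0, *grid1a* lower in 7 and higher in 1, *gria1a* lower in 7 and higher in 0, and *grin2ab* lower in 7 and higher in 3. *gria2a* was lower in 1 of 16 and higher in 0. *grik1a* was higher in 3 of 12 gates and lower in 1. The gates of an arm share cells and comparison cells, so that these counts are not independent.

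**Figure D5:**
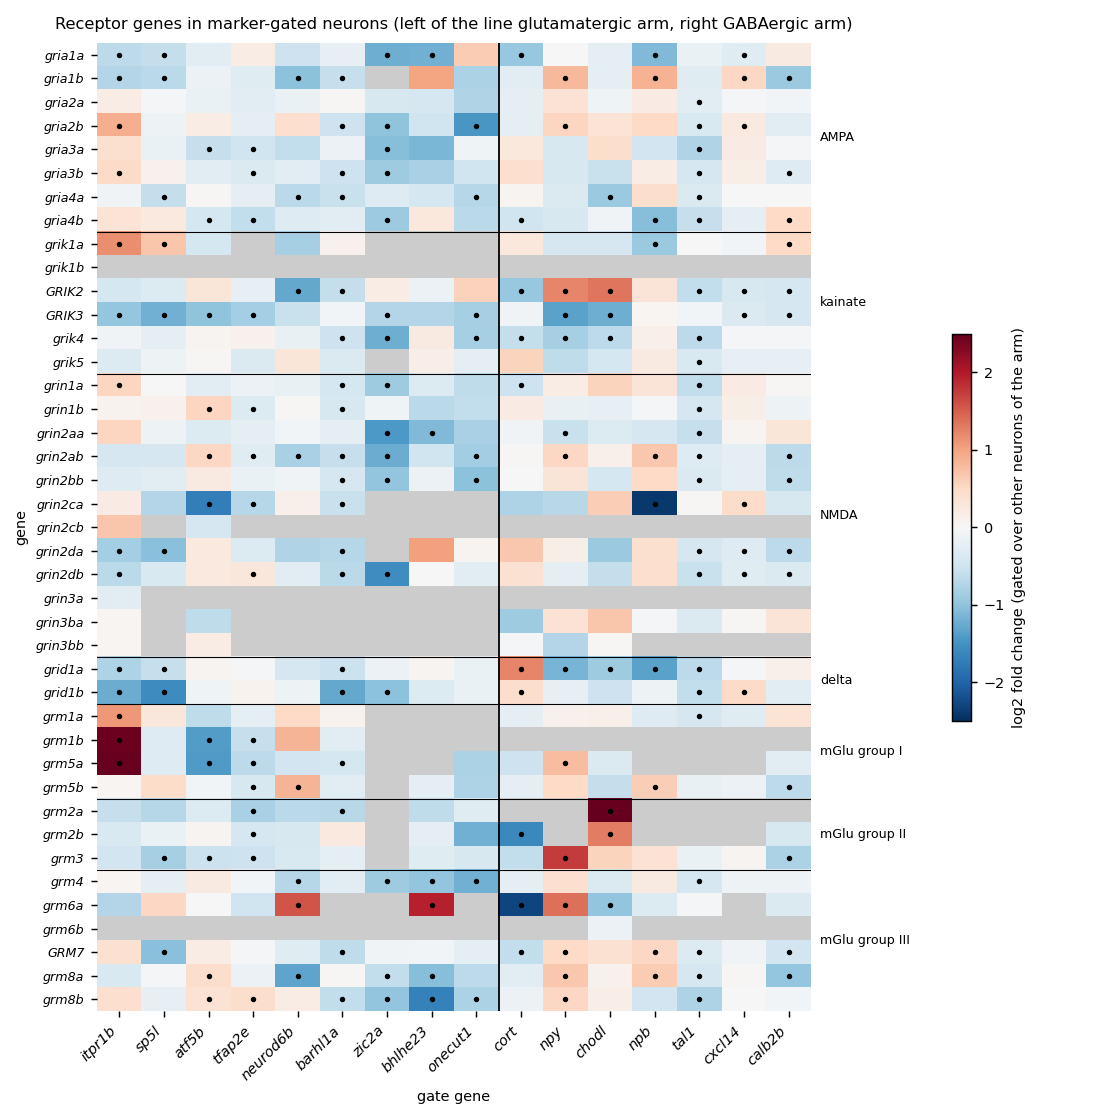
Fitted log2 fold change of each receptor gene (y axis) in neurons gated on 1 gene (x axis) over the other neurons of the arm, in colour, with the glutamatergic arm left of the line and the GABAergic arm right of it. *grm5a* is high in the *itpr1b* column and *grm2a* in the *chodl* column, and *GRIK3* is below 0 in most columns.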

How the data were processed

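Single-cell 3′ RNA sequencing of dissected optic tecta was read from 12 lanes, and the 2 lanes of batch 11 were summed, which gave 11 batches. The deposited values are raw UMI counts per gene and barcode, made by the authors with Cell Ranger 7.1.0 on GRCz11, without normalization; with its default options intronic reads are counted, and how reads shared by a and b copies were counted is not given in the sources used here. Receptor genes were chosen by symbol; 1 gene of this family and 1 partner gene are not reported here and enter no count of members or lists. These genes, the partner lists and the markers were chosen with earlier results of these data known.

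Barcodes with 600 to 4000 genes, up to 7500 UMIs and up to 10% mitochondrial UMIs were kept. A neuron had UMIs of at least 5 of 12 neuron markers. A GABAergic neuron had at least 2 of 4 GABAergic markers and no UMI of a glutamatergic one, and a glutamatergic neuron at least 1 UMI of 3 glutamatergic markers and none of a GABAergic one. Other classes had at least 8 of 14 (radial glia), 4 of 15 (cycling progenitor), 5 of 12 (committed precursor), 3 of 12 (oligodendrocyte lineage), 5 of 16 (microglia) or 6 of 12 (erythrocyte) markers. These limits were set after marker counts had been seen, on marker counts alone. The classes and background held 21618 cells with those of endothelium and epidermis. No doublet caller was run: 474 cells that reached the limits of 2 or more classes were left out, as were neurons with both transmitters, and cells of at most 4000 UMIs were an alternative.

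Counts were summed per batch and class (at least 20 cells; 10 for a gate) and tested with edgeR 4.0.16 in R 4.3.3 (quasi-likelihood test, TMM, filterByExpr, Benjamini-Hochberg over all genes tested, threshold 0.05). A log2 difference is that of the first class over the second, and its SE was taken from the F statistic. Batch was a block, as its classes share pooled larvae, so p-values measure how class differences vary between batches. The age comparison had the sequencer as a covariate. CPM divides by all UMIs of the class in a batch. Detection was the share of cells with a UMI after thinning to 1000 UMIs, and shallower cells were left out (423 GABAergic, 282 glutamatergic, 7 committed precursor, 20 cycling progenitor, 96 radial glia, 8 oligodendrocyte lineage and 7 background cells). The tests were checked on simulated counts. Python 3.11.15, numpy 2.4.6, scipy 1.17.1, pandas 2.3.3 and matplotlib 3.10.9 were also used.

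Named genes were, between transmitter classes, up to 12 per direction past the threshold by largest log2 difference and with 1 direction in at least 80% of batches, up to 6 by that rule in other class comparisons, up to 3 per direction in a gate without the condition on batches, and the other copy of each; lists have up to 4 examples per comparison. Further members are named with their values to account for the family. Alternatives were DESeq2 1.42.0, no filter on low counts, no block, each batch left out, batches 1 to 8 alone, cells of at most 4000 UMIs, thinned cells, a stricter class gate, gates at 1 UMI, and cells without habenula or lens markers. Leaving out batches other than 10 in the gates was added after the data had been seen.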

Additional observations from a re-analysis of the deposited data

Results flagged for a closer look

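Of 46 levels of named genes in progenitor, glial and lineage classes with few enough batches to test, 15 had 1 batch far from the others by Dixon's ratio, which chance gives in about 1 of 20 groups. The ratios of 1 batch are not independent, since its levels share one total.

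In cycling progenitors, batch 10 lay above the other 7 batches for 6 genes. *gria3b* was at 327.9 CPM against 120.9 CPM in the next batch, *grin1b* at 112.4 against 49.5 CPM and *grid1a* at 205.4 against 82.4 CPM. *grid1b* was at 1524 against 511 CPM, *GRM7* at 101.3 against 33 CPM and *grm8b* at 171.3 against 53.9 CPM. The neuron markers of that batch were at 3729 CPM, against at most 2258 CPM elsewhere.

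In oligodendrocyte lineage cells, batch 12 lay above the other 7 batches for 7 genes. *gria4a* was at 1708 against 819 CPM in the next batch, *gria4b* at 231.3 against 104 CPM, *grik4* at 1020 against 408 CPM and *grik5* at 142.9 against 78.9 CPM. *grin2ab* was at 142.9 against 70.7 CPM, *grm8b* at 292.5 against 104 CPM, and *grid1a* at 1123 CPM, where the next batch was at 610 CPM. This batch held 33 such cells, and its oligodendrocyte lineage markers (4681 CPM) lay within the range of the others. Among batches 10 to 12 it was the only one in this class, and the part of depth or sequencer was not tested.

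In radial glia, *grin2ca* was at 44.05 CPM in batch 7, against 13.2 CPM in the next of 6 batches, and *grin3bb* at 30.77 CPM in batch 12, against 12.1 CPM.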

How the results depend on the processing

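The 124 named values gave 1721 values under the alternatives, of which 1516 kept direction and call, 205 kept direction and lost the call and 0 changed direction. Without the replicate block 82 calls were lost: between transmitter classes 2 genes were higher and 3 lower, and in cycling progenitors 1 was higher. DESeq2 lost 22, no filter on low counts 17, gates at 1 UMI 16, batches 1 to 8 alone 6, and thinned cells and cells of at most 4000 UMIs 1 each. In batches 1 to 8 alone 2 genes were lower in GABAergic neurons, and 1 was higher and 16 lower in radial glia. Radial glia had 1 gene higher without the filter and 4 with the stricter class gate. Oligodendrocyte lineage cells had 5 higher with at most 4000 UMIs, 22 lower without the filter (41 genes tested) and 4 lower in thinned cells (19 tested); fewer or more genes tested is part of the construction of these settings, and other causes were not tested.

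Leaving out 1 batch gave 14 to 17 genes higher and 5 to 8 lower between transmitter classes, 0 higher and 34 to 35 lower in committed precursors, 0 to 1 and 31 to 33 in cycling progenitors (the gene was higher without batch 6 or 8), 2 and 25 to 31 in radial glia, and 8 to 9 and 7 to 8 in oligodendrocyte lineage cells. For age and the interaction it gave 0. Each named call lost in this way belonged to a gate; without the replicate block the 16 gates had 0 to 2 genes higher and 0 to 2 lower. Genes with a mean share of cells above the background share numbered 11 in committed precursors after thinning, 21 unthinned and 18 with at most 4000 UMIs, and 9 in cycling progenitors, 15 unthinned; depth per cell was higher there than in neurons. Genes at a few CPM rest on few UMIs, which limits what a value of 0 can show.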
